A study of Mus musculus with 18 samples.

Results

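Bone marrow-derived macrophages lacking TLR4 were compared with wild-type macrophages after 24 h in water alone, the condition that serves as the baseline for the muropeptide treatments in the same study. Membership went by label alone: 6 of the 18 libraries of the series entered, 3 labelled TLR4 knockout (KO) and 3 labelled wild type (WT), with every gene that had enough counts to test. KO cells came from bone marrow of TLR4-knockout mice and WT cells from bone marrow of wild-type mice, both on the C57BL/6J background. Both were grown in complete medium with L929 supernatant, which carries the macrophage growth factor M-CSF from a mouse fibroblast line, and were treated on day 7 in serum-free IMDM with an equal volume of water. The other 12 libraries were KO and WT cells treated with GM (GlcNAc-MurNAc) or MDP (labelled MurNAc-D-Ala-L-Gln), both fragments of bacterial cell wall. The labels call the replicates biological and number them, but name no animals, litters or culture days. The spread behind each p-value is thus that of the 3 samples a group. Whether they were separate animals or cultures was not stated, so the spread may be partly technical. How the knockout was made, and which part of the gene it lacks, was not stated in the sources used here.

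TLR4 is the receptor of macrophages for bacterial lipopolysaccharide. Lipopolysaccharide is handed over by the binding protein LBP to CD14 and then to MD-2 (gene Ly96), which sits on the outer part of TLR4. The paired receptor signals through the adaptors MyD88 and TIRAP to the IRAK kinases and NF-kB, which switch on cytokine genes, and through TRAM and TRIF to the kinases TBK1 and IKK-epsilon, which switch on interferon beta and the genes it induces. Macrophages grown from bone marrow with M-CSF rest in an unstimulated state in which most of these targets are low.

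Levels are given as counts-per-million values of the scaled library size (CPM), in the order of replicates 1, 2 and 3 of each genotype, and differences as log2 fold changes of KO over WT with their standard errors. The 6 libraries held 15532973 to 20682663 counts, and 14294 of 56748 genes passed the filter on low counts. WT replicate 3 stood apart. The first principal component separated the genotypes (69.0% of the variance), and the second separated WT replicate 3, at 49.5, from WT replicates 1 and 2, at -26.1 and -22.5, with the KO libraries between -1.36 and 0.47 (26.2%). The biological coefficient of variation was 5.67% among KO libraries, 33.9% among WT libraries and 5.88% between WT replicates 1 and 2. Its label gives no reason, so counts of genes are given with and without it. Genes called with all 6 libraries are also given without it where the call changed or the fold moved more than 1.5 times. For genes not called with 6 libraries this was done for some only. A gene named as not called may thus be called without WT replicate 3, as 4753 genes tested in both fits were. Mitochondrial genes took 3.35 to 3.79% of counts in all 6, so this share did not mark the library. All 18 libraries held 6495 to 12704 counts of Xist, which is transcribed from the inactive X chromosome, and 0 counts of the 4 Y-linked genes Ddx3y, Eif2s3y, Kdm5d and Uty. Nnt, which is disrupted in C57BL/6J mice, had 0 to 8 counts in every library of both genotypes. Xist was not called in water (adjusted p = 0.16), and its antisense gene Tsix was higher in KO (log2 fold change 1.13 ± 0.23, adjusted p = 0.0226), but without a stated counting strand reads of the overlapping pair cannot be told apart.

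Tlr4 was lower in the KO cultures but not absent. It had 51.7, 52.6 and 46.1 CPM in KO cultures, against 154, 148 and 228 CPM in WT cultures. Every KO library lay below every WT library, and WT replicate 3 was the highest of the 6. The log2 fold change was -1.82 ± 0.19 in edgeR's quasi-likelihood test (adjusted p = 0.0035), and -1.59 without WT replicate 3 (adjusted p = 2.17e-23). Gene counts do not say which exons the reads came from, so the remaining KO counts could not be placed in or outside a deleted part. A gene known only by its identifier, ENSMUSG00000121059, lies within Tlr4 on the same strand (chromosome 4, 66762713 to 66764269, in GRCm39, the build of all gene coordinates given here). It had 1.64, 1.6 and 2.04 CPM in KO cultures, against 21.2, 21.6 and 19.5 CPM in WT cultures (log2 fold change -3.56 ± 0.16, adjusted p = 0.000497). How the counting divided reads between the overlapping genes was not stated in the sources used here.

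Around the receptor, Irak3, Cd14, Lbp, Ticam2 and Ikbke were called higher in KO cultures, and Myd88, Irak4, Irak1 and Ly86 lower, several of them in few fits. Of 26 tested genes of the complex and its signalling chain, 5 were higher and 5 lower, Tlr4 among them, with a median log2 fold change of -0.20. Over all genes tested 15.8% were called, 6.98% higher and 8.8% lower, with a median of -0.02. Without WT replicate 3, 10 were higher and 8 lower, against 49.3% of all genes tested in that fit, and with any other library left out 3 to 4 were higher and 1 lower. Irak3, which encodes IRAK-M, an inhibitor of IRAK signalling (chromosome 10, 119977553 to 120038035, minus strand), had 117, 131 and 142 CPM in KO cultures, against 23.6, 24.4 and 29.6 CPM in WT cultures (log2 fold change 2.33 ± 0.13, adjusted p = 0.000604). The genotypes were far apart here, and the WT libraries agreed closely with each other. Cd14 had 262, 270.2 and 288 CPM in KO cultures, against 51.6, 50.8 and 140 CPM in WT cultures (log2 fold change 1.76 ± 0.41, adjusted p = 0.0361, 2.42 without WT replicate 3). Its WT libraries were uneven, with replicate 3 above the others and still below all KO libraries. Lbp had 4.23, 4.29 and 4.14 CPM in KO cultures, against 0.954, 1.03 and 0.768 CPM in WT cultures (log2 fold change 2.20 ± 0.23, adjusted p = 0.00353), low levels in both genotypes that did not overlap. Ticam2, the TRAM adaptor, had 52.4, 52.2 and 56.6 CPM in KO cultures, against 29.4, 27.5 and 22.2 CPM in WT cultures (log2 fold change 1.03 ± 0.13, adjusted p = 0.00566). Ikbke, the kinase IKK-epsilon, had 76.9, 81.6 and 84.7 CPM in KO cultures, against 35, 31.6 and 14.6 CPM in WT cultures (log2 fold change 1.58 ± 0.31, adjusted p = 0.0215), with WT replicate 3 the lowest library.

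Ly96, the MD-2 partner that binds lipopolysaccharide, was not called. It had 9.15, 9.91 and 9.71 CPM in KO cultures, against 9.49, 9.81 and 14 CPM in WT cultures (log2 fold change -0.21 ± 0.19, adjusted p = 0.471), and without WT replicate 3 the groups overlapped at a log2 fold change of -0.01. Among the lower members, Myd88 had 60.9, 56.9 and 63.4 CPM in KO cultures, against 91.1, 89.2 and 73.1 CPM in WT cultures (log2 fold change -0.48 ± 0.11, adjusted p = 0.0344). The kinases Irak4 and Irak1 differed by log2 fold changes of -0.47 ± 0.09 (adjusted p = 0.0195) and -0.40 ± 0.08 (adjusted p = 0.0187) in edgeR's test. Ly86, which encodes MD-1, the partner of the TLR4-like receptor RP105, had 15.3, 12 and 13.4 CPM in KO cultures, against 43.5, 47.9 and 18.6 CPM in WT cultures (log2 fold change -1.44 ± 0.35, adjusted p = 0.0406). In each of these lower genes all KO libraries lay below all WT libraries. RP105 itself (gene Cd180) was not called, at 203, 205 and 208 CPM in KO cultures, against 164, 184 and 104 CPM in WT cultures (adjusted p = 0.185). Other links of the chain were not called, among them Tirap at -0.19, Ticam1 (TRIF) at -0.43, Tbk1 at -0.20 and Traf6 at -0.71 (adjusted p 0.0996 to 0.532). The calls of Tlr4, Irak3, Lbp and Ticam2 held with any 1 of the 6 libraries left out. The calls of Cd14, Irak1, Irak4, Myd88 and Ly86 were lost with any 1 library except WT replicate 3 left out (highest adjusted p 0.11 to 0.154), those of Ikbke with any 1 KO library or WT replicate 2 left out (0.0939).

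**Figure D1:**
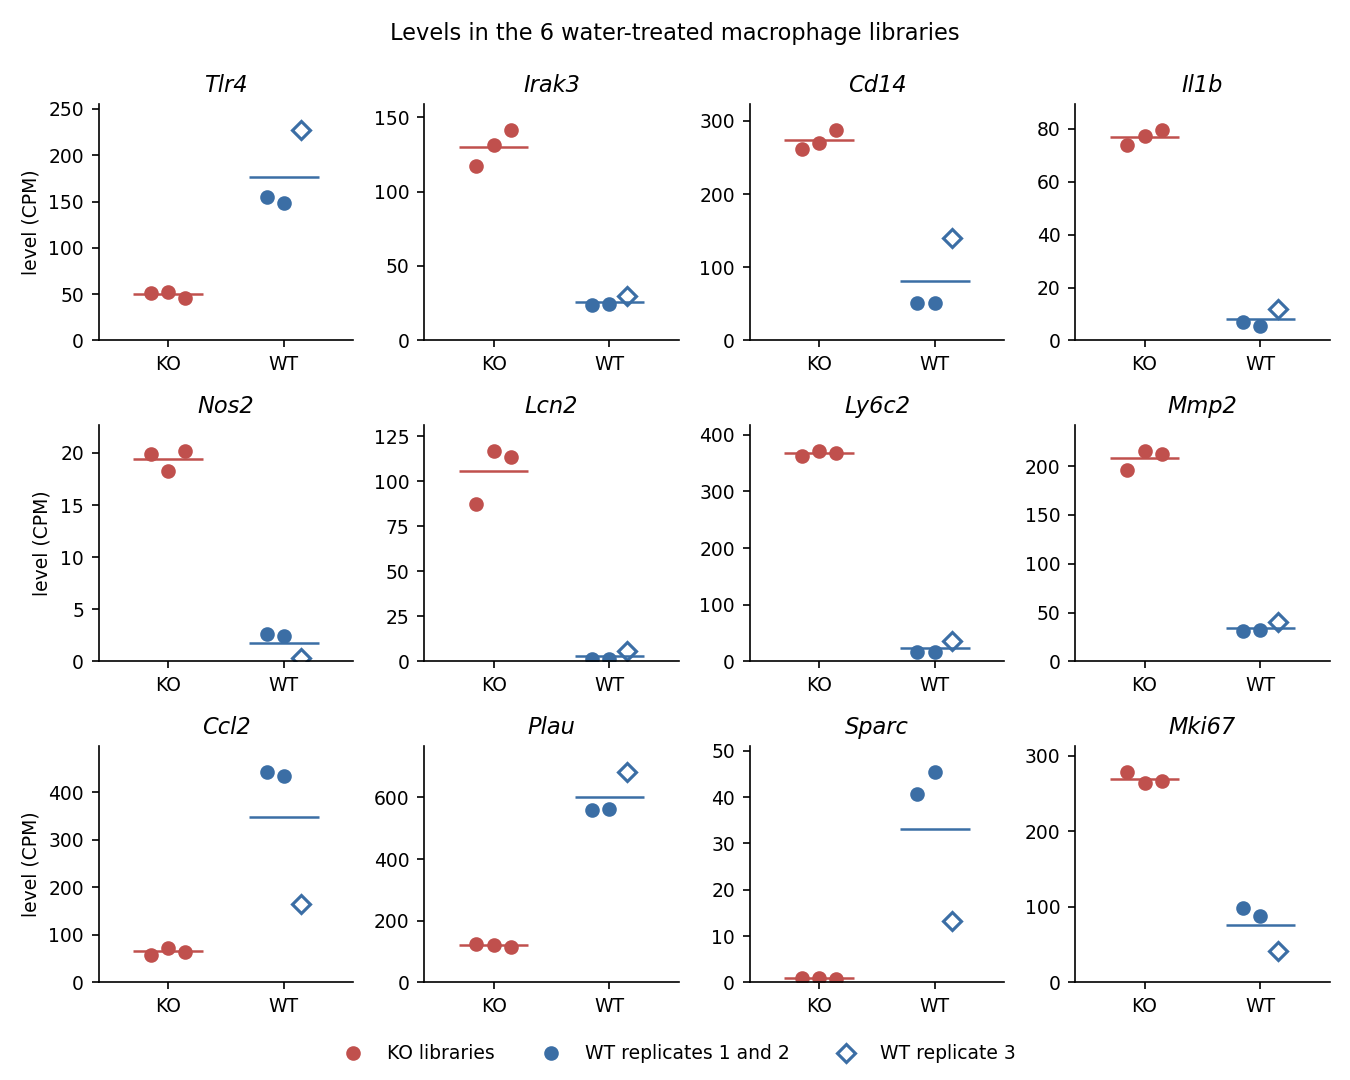
Level of 12 genes in each library, in CPM on the vertical axes of separate panels, with KO libraries left and WT libraries right. Circles are libraries, the open diamond is WT replicate 3, and short lines are group means (n = 3 each); Tlr4 lay below all WT libraries in KO cultures, Irak3, Cd14, Il1b, Nos2, Lcn2, Ly6c2, Mmp2 and Mki67 lay above them, and Ccl2, Plau and Sparc lay below them.

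Across all genes, KO and WT cultures differed widely without any added ligand. edgeR's quasi-likelihood test called 2256 of 14294 genes (15.8%) at an adjusted p below 0.05, 998 higher and 1258 lower in KO cultures. Of these, 1119 differed at least 2-fold, 525 of them higher and 594 lower. Without WT replicate 3, 7264 of 14730 genes were called (49.3%), 3427 higher and 3837 lower. The smaller set was nearly contained in the larger one: 2248 of the 2256 genes were called in both fits, all in the same direction. The fit of all 18 libraries, which shares 1 estimate of spread, called 5110 genes (33.1%). Without KO replicate 1, 2 or 3 the count was 405, 353 or 386, and without WT replicate 1 or 2 it was 1381 or 1042. A count of 319 genes (2.23%), 162 higher and 157 lower, was called in the fit of 6 libraries and in all 12 alternatives tried. In 3273 genes (22.9%) every KO library lay above every WT library, and in 3289 (23%) below.

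**Figure D2:**
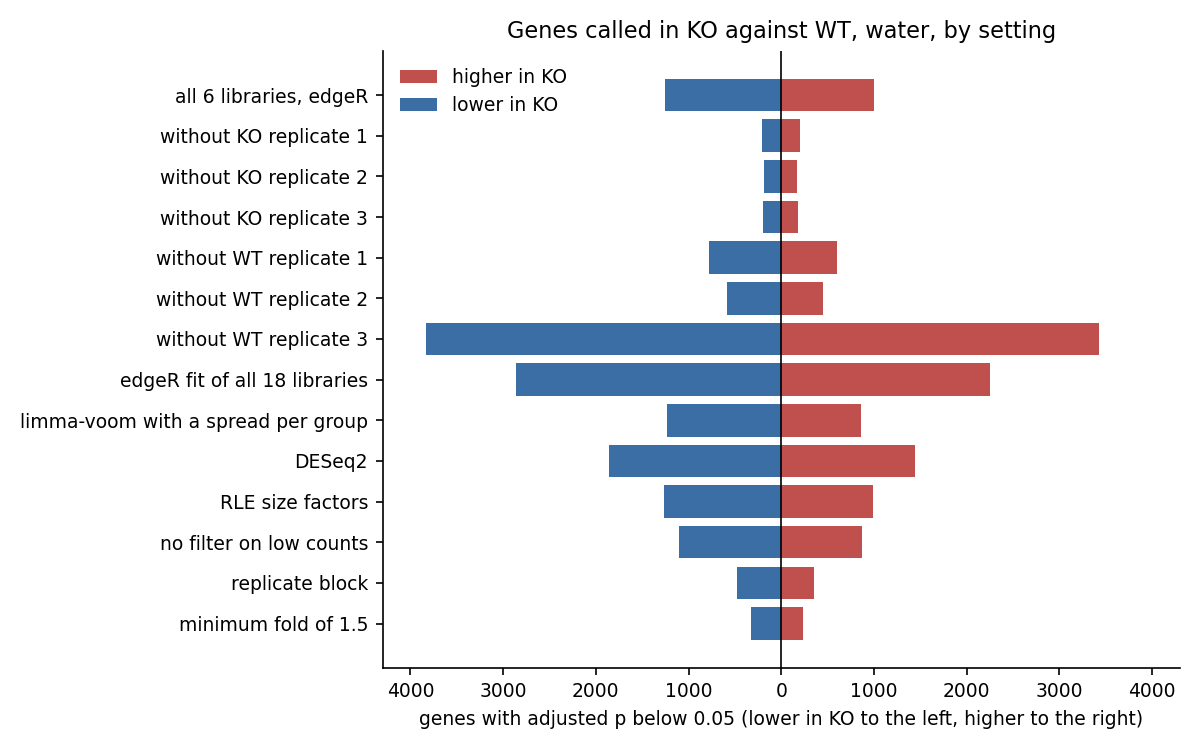
Number of genes called lower (left of 0) and higher (right of 0) in KO cultures, on the horizontal axis, for each fit on the vertical axis. The fit of all 6 water libraries called 998 higher and 1258 lower, the fit without WT replicate 3 called 3427 and 3837, and the fits without a KO library called 170 to 200 and 183 to 205.

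WT replicate 3 did not lie simply between WT replicates 1 and 2 and the KO cultures. Of the 7001 genes called without it and also tested with it, its level lay on the far side of WT replicates 1 and 2 from the KO cultures in 3158 (45.1%), between them and nearer the other WT libraries in 1263 (18%), between them and nearer KO in 943 (13.5%), and beyond the KO level in 1637 (23.4%). Genes far above the other WT libraries were led by the neutrophil chemokine Cxcl3, with 18.2, 19 and 18.7 CPM in KO cultures, against 2.81, 11 and 299 CPM in WT cultures. Hilpda, a lipid droplet protein induced by low oxygen, had 15.4, 11.7 and 11.5 CPM in KO cultures, against 8.73, 17 and 214 CPM in WT cultures. Cxcl2, Il36g and the small nuclear RNA gene Rn7sk were the others of the 5 highest. At the low end, Ciita, the master regulator of MHC class II genes, had 47.3, 46.5 and 44.7 CPM in KO cultures, against 158, 135 and 4.28 CPM in WT cultures. Asgr2, H2-DMb2, Fndc5 and Dpp4 were the others of the 5 lowest. Of these 10 genes, Asgr2 alone was called with all 6 libraries (log2 fold change -6.67 ± 1.52, adjusted p = 0.0329), and without KO libraries or WT replicate 1 or 2 its adjusted p reached 0.142.

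Among genes that reached 5 CPM in the higher group and were called with and without WT replicate 3, the 10 largest increases in KO cultures were those of Tgm6, Cx3cr1, Vnn3, Lcn2, Fpr1, Pou2f2, Stfa3, Gpr84, Prss34 and Siglece. Tgm6, a transglutaminase (chromosome 2, 129954336 to 129996152, plus strand), came first with 10.4, 11.9 and 9.83 CPM in KO cultures, against 0.1, 0.121 and 0 CPM in WT cultures (log2 fold change 7.07 ± 0.47, adjusted p = 0.00091). Its transcript was nearly absent from all WT libraries. Cx3cr1, the fractalkine receptor of monocytes and resident macrophages, had 13, 11.4 and 11.1 CPM in KO cultures, against 0.552, 0.121 and 0.11 CPM in WT cultures (log2 fold change 5.42 ± 0.50, adjusted p = 0.00259, 6.60 without WT replicate 1). Fpr1, the receptor for bacterial formyl peptides, had 143, 166 and 175 CPM in KO cultures, against 1.51, 2.42 and 13.5 CPM in WT cultures (log2 fold change 4.80 ± 0.81, adjusted p = 0.0139, 6.39 without WT replicate 3). WT replicate 3 was several times the other WT libraries for Fpr1 and still far below KO. Pou2f2, the transcription factor Oct-2, had 51.4, 61.2 and 66.2 CPM in KO cultures, against 2.26, 3.45 and 0.768 CPM in WT cultures (log2 fold change 4.79 ± 0.46, adjusted p = 0.00291). Gpr84, a receptor for medium-chain fatty acids, had 21.8, 27.5 and 27.5 CPM in KO cultures, against 1.2, 1.15 and 0.768 CPM in WT cultures (log2 fold change 4.61 ± 0.22, adjusted p = 0.000497). Both were low in every WT library. Siglece, an inhibitory sialic acid-binding receptor, had 30.8, 37.5 and 39.2 CPM in KO cultures, against 3.56, 1.7 and 0.439 CPM in WT cultures (log2 fold change 4.22 ± 0.60, adjusted p = 0.00878, 5.08 without WT replicate 1). Stfa3, from a cluster of near-identical stefin A protease inhibitors whose reads may be divided uncertainly, had 6.14, 9.82 and 9.71 CPM in KO cultures, against 0, 0 and 0.933 CPM in WT cultures (log2 fold change 4.75 ± 1.04, adjusted p = 0.0293, 4.14 without WT replicate 1, at least 104-fold higher without WT replicate 3 against a floor of 3 counts). With each of the 6 libraries left out in turn, Tgm6, Cx3cr1, Pou2f2 and Gpr84 remained called. The call of Fpr1 and Siglece ended with any 1 KO library left out (highest adjusted p 0.0567 to 0.0713), that of Stfa3 with any 1 library except WT replicate 3 left out (0.124).

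The 10 largest decreases by the same rule were those of Sfrp1, Cxcl12, Vgll3, Prrx1, Ccn2, Col8a1, Grem1, Hspb1, Col3a1 and Asgr2. Sfrp1, a secreted inhibitor of Wnt signalling, had 0, 0 and 0 CPM in KO cultures, against 13.5, 14.2 and 0.878 CPM in WT cultures. With 0 counts in every KO library the fold is a bound, at least 180-fold lower in KO cultures (floor of 3 counts over the group), and at least 111-fold with any 1 library left out. Cxcl12, the stromal chemokine that holds blood stem cells in the marrow (chromosome 6, 117145496 to 117158328, plus strand), had 0.212, 0 and 0 CPM in KO cultures, against 40.4, 38.6 and 4.28 CPM in WT cultures (log2 fold change -8.49 ± 1.34, adjusted p = 0.0116, -7.85 without KO replicate 2, at least 353-fold lower without KO replicate 1 against a floor of 3 counts). Ccn2, connective tissue growth factor, had 0.212, 0.137 and 0.124 CPM in KO cultures, against 38.3, 33.6 and 16.6 CPM in WT cultures (log2 fold change -7.48 ± 0.48, adjusted p = 0.000825). For both, WT replicate 3 was the lowest WT library and the groups did not overlap. In bulk cultures, fewer cells of a type and less RNA per cell cannot be told apart, for these genes as for the cell type markers that follow. Grem1, an antagonist of bone morphogenetic proteins, had 0.159, 0.228 and 0.309 CPM in KO cultures, against 34, 37.4 and 17.6 CPM in WT cultures (log2 fold change -6.98 ± 0.44, adjusted p = 0.000825). Prrx1, a transcription factor of mesenchymal cells, had 1 count in all KO libraries together and 8.88, 7.81 and 2.96 CPM in WT cultures. The scaled ratio of WT over KO was 375 (95% counting interval 66.9 to 14861) for Prrx1 and 415 (74.0 to 16425) for Vgll3, a cofactor of TEAD transcription factors, also with 1 KO count. Col8a1, a network-forming collagen, and Hspb1, a small heat shock protein, had 3 KO counts each, with ratios of 144 (48.9 to 700.3) and 134 (45.5 to 653). The ratio of Hspb1 without WT replicate 3 was 67.8 (22.7 to 333), and without the 1 KO library that held their count Prrx1 and Vgll3 were at least 83.6-fold and 85.1-fold lower in KO cultures. These intervals cover counting error only. Asgr2 is a subunit of the asialoglycoprotein receptor, and Col3a1 a fibrillar collagen. Left out 1 at a time, no library changed the call of Ccn2, Grem1, Prrx1 and Vgll3. Calls that were lost were those of Cxcl12 and Hspb1 with any 1 KO library left out (highest adjusted p 0.059 to 0.0845), of Col8a1 with any 1 KO library or WT replicate 2 left out (0.103), of Sfrp1 with any 1 library except WT replicate 3 left out (0.124).

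Among genes with the highest mean CPM (not per length) that differed at least 2-fold, Mpeg1, Tnfrsf1b, C3, Scd2 and Tgfbi were higher in KO cultures and Spp1, Hsp90ab1, Ctsl, Itgax and Atp6v0d2 lower. Mpeg1, which encodes the pore-forming protein perforin-2 of macrophages, had 4802, 4664 and 4895 CPM in KO cultures, against 2122, 2298 and 2317 CPM in WT cultures (log2 fold change 1.09 ± 0.09, adjusted p = 0.00163). C3, the central complement component, had 1290.3, 1252 and 1304 CPM in KO cultures, against 441, 465 and 475 CPM in WT cultures (log2 fold change 1.48 ± 0.08, adjusted p = 0.000619). Both were tight within each genotype, WT replicate 3 included. Tnfrsf1b, the second receptor for TNF, had 1368, 1340.5 and 1426 CPM in KO cultures, against 538, 554 and 658 CPM in WT cultures (log2 fold change 1.24 ± 0.11, adjusted p = 0.00218). Scd2, a fatty acid desaturase, had 1253, 1248 and 1279 CPM in KO cultures, against 520.2, 478 and 142 CPM in WT cultures (log2 fold change 1.73 ± 0.45, adjusted p = 0.0496). Spp1, osteopontin, had 2529, 2426 and 2384 CPM in KO cultures, against 4658, 4899.9 and 7687 CPM in WT cultures (log2 fold change -1.23 ± 0.20, adjusted p = 0.0131). Hsp90ab1, a cytosolic chaperone, had 811, 805 and 839 CPM in KO cultures, against 1643, 1719 and 2497 CPM in WT cultures (log2 fold change -1.25 ± 0.18, adjusted p = 0.00838). For both, WT replicate 3 was the highest library and so lay further from KO than the other WT libraries. Itgax, the integrin CD11c, had 589, 558 and 577 CPM in KO cultures, against 1406, 1374 and 1125 CPM in WT cultures (log2 fold change -1.18 ± 0.11, adjusted p = 0.00284). No single library decided the call of Mpeg1, C3, Tnfrsf1b and Itgax. In fits short of any 1 KO library, Spp1 and Hsp90ab1 missed the threshold (highest adjusted p 0.0632 to 0.083), in fits short of any 1 library except WT replicate 3 so did Scd2 (0.15).

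Gene lists were then read across the culture: macrophage programmes first, then markers of other cells the marrow could supply. The medians with all 6 libraries ran from -4.61 for fibroblast and stroma markers to 3.02 for mast cell and basophil markers. For comparison with the counts of each list below, 6.98% of all genes tested were called higher and 8.8% lower. Without WT replicate 3 these shares were 23.3% and 26%. For list counts in other settings, 4782 of all 14294 genes had an unadjusted p below 0.05 in edgeR, in either direction. DESeq2 called 1447 of 17240 genes higher and 1858 lower, and limma with voom 859 of 14294 higher and 1231 lower.

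**Figure D3:**
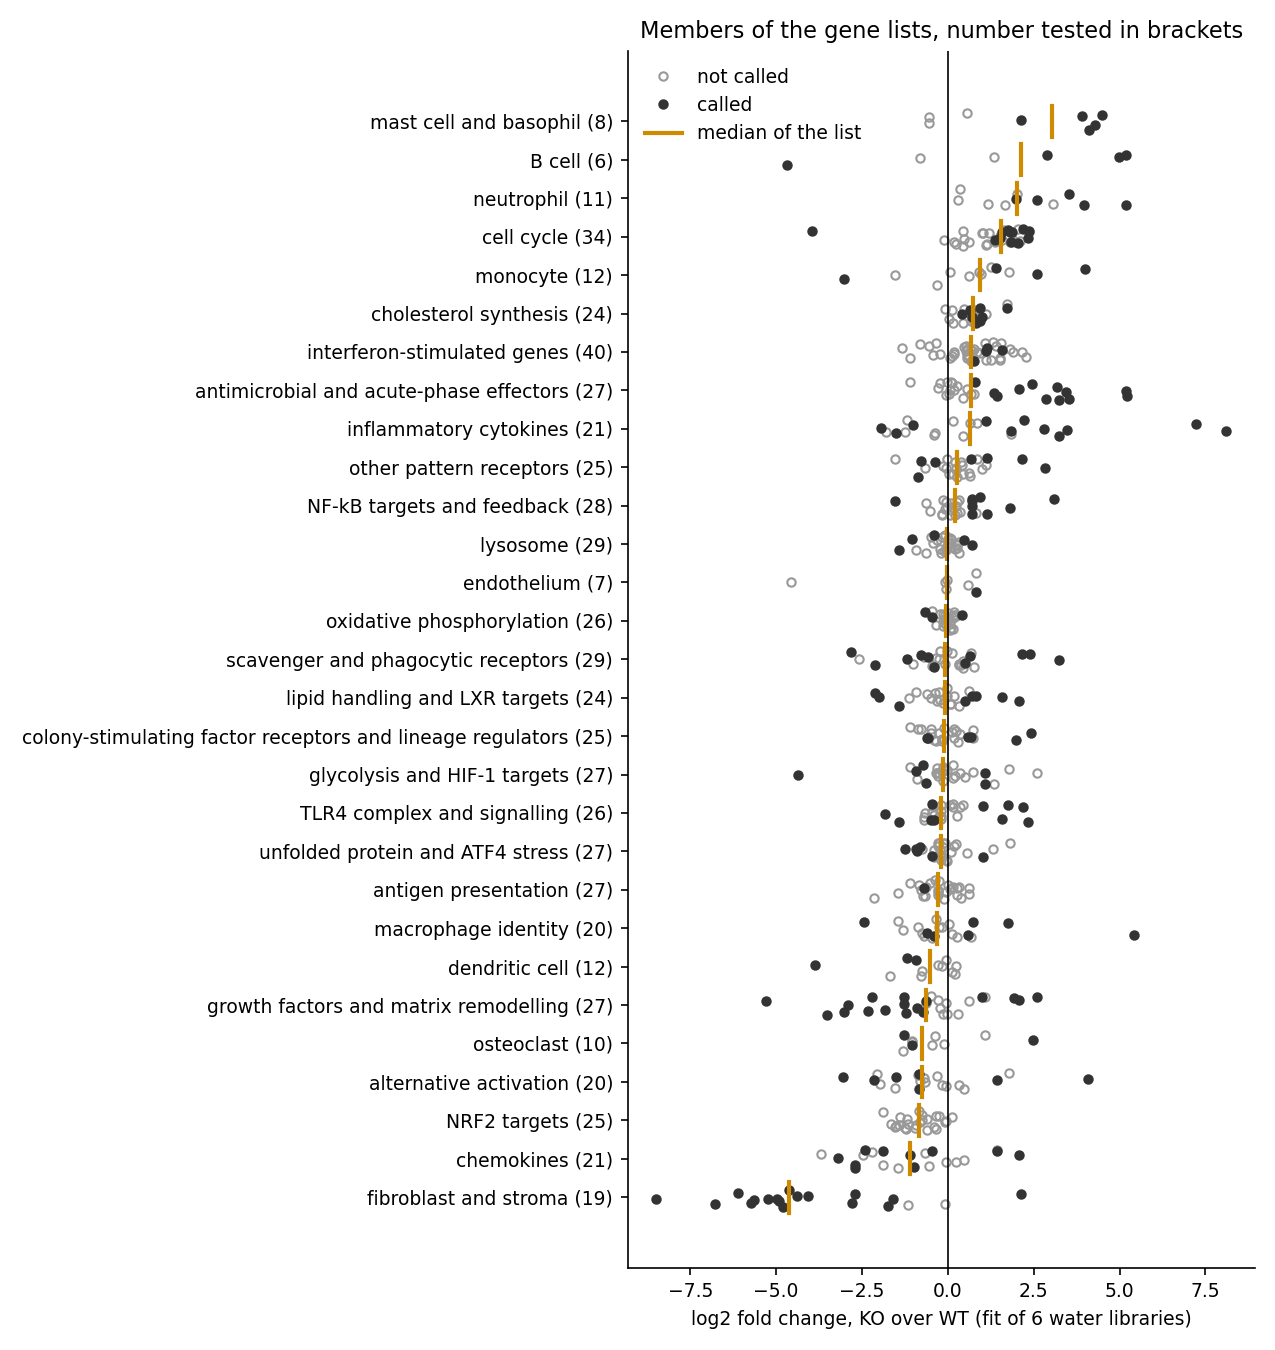
Log2 fold change of KO over WT (horizontal axis) for each tested member of the gene lists (vertical axis). Filled points are members called by edgeR, open points are not, and orange marks are list medians; antimicrobial effectors (median 0.66) and cell cycle genes (1.55) lay to the right, chemokines (-1.11) and fibroblast and stroma markers (-4.61) to the left.

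Inflammatory cytokine genes were called in both directions, more of them higher in KO cultures, Il1b and Tnf among them. Of 21 members tested, 8 were higher and 3 lower, with a median log2 fold change of 0.64. The counts were 11 and 5 without WT replicate 3 (median 0.53), and 4 to 8 and 0 to 1 with another library left out. Il1b, interleukin-1 beta, had 74.1, 77.4 and 79.7 CPM in KO cultures, against 7.08, 5.57 and 12 CPM in WT cultures (log2 fold change 3.23 ± 0.28, adjusted p = 0.00224). Tnf had 51.4, 64.8 and 60.5 CPM in KO cultures, against 18.4, 19 and 11.6 CPM in WT cultures (log2 fold change 1.85 ± 0.21, adjusted p = 0.00473). Neither gene's groups overlapped, and WT replicate 3 was the highest WT library for Il1b and the lowest for Tnf. Il6 was low in both, with 3.7, 2.97 and 3.34 CPM in KO cultures, against 0.552, 0.666 and 0.933 CPM in WT cultures (log2 fold change 2.21 ± 0.29, adjusted p = 0.00705). All KO values again lay above all WT values. Il12a and Csf3, which encode the p35 chain of interleukin-12 and the granulocyte growth factor G-CSF, had 1.64, 2.15 and 1.73 CPM and 1.01, 0.914 and 1.11 CPM in KO cultures and no count in any WT library. Their bounds were at least 33.9-fold higher for Il12a and at least 18.2-fold higher for Csf3 in KO cultures, against a floor of 3 counts over the WT group, and at least 21.5-fold and 11.6-fold with any 1 library left out. Tnfsf13b (BAFF, a survival factor of B cells) had 4.76, 6.44 and 4.89 CPM in KO cultures, against 0.452, 0.545 and 0.439 CPM in WT cultures (log2 fold change 3.47 ± 0.26, adjusted p = 0.00141). Tnfsf15 and Ebi3, a chain of interleukin-27, were also higher, by log2 fold changes of 2.79 ± 0.55 and 1.10 ± 0.10 (adjusted p = 0.0213 and 0.00273).

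The lower cytokines were a receptor blocker and growth factors. Il1rn, the interleukin-1 receptor antagonist, had 364, 375 and 370.1 CPM in KO cultures, against 758, 824 and 1596 CPM in WT cultures (log2 fold change -1.52 ± 0.29, adjusted p = 0.0203). Csf1, which encodes M-CSF, had 155, 166 and 153 CPM in KO cultures, against 354, 382 and 232 CPM in WT cultures (log2 fold change -1.03 ± 0.19, adjusted p = 0.0181). Lif, a cytokine of the interleukin-6 family, had 0.529, 0.457 and 1.48 CPM in KO cultures, against 3.76, 2.36 and 3.18 CPM in WT cultures (log2 fold change -1.94 ± 0.50, adjusted p = 0.0461, -2.64 without KO replicate 3). In all of them every KO library lay below every WT library. Il1a was not called with 6 libraries, at 62.4, 70.7 and 62.2 CPM in KO cultures, against 23.4, 26.2 and 75.7 CPM in WT cultures (adjusted p = 0.359), with WT replicate 3 above the KO libraries, and without it the log2 fold change was 1.40 (adjusted p = 1.66e-17). The other 6 members had too few counts to test: Il23a, Il10, Il19, Csf2, Ifnb1 and Il33, with at most 6 counts in any library. Every fit short of 1 library still called Tnfsf13b, Il1b, Tnf and Ebi3. The threshold was missed by Il12a, Csf3 and Il1rn with any 1 KO library left out (highest adjusted p 0.0548 to 0.105), by Il6 with KO replicate 1 or KO replicate 3 left out (0.0517), by Lif with WT replicate 1, WT replicate 2, KO replicate 1 or KO replicate 2 left out (0.173), by Tnfsf15 with any 1 KO library or WT replicate 2 left out (0.095), by Csf1 with any 1 library except WT replicate 3 left out (0.095).

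Direct targets of NF-kB were split: feedback inhibitors and survival genes were higher in KO cultures, and most others did not pass the test. The test called 8 of the 28 members tested higher and 1 lower (median log2 fold change 0.22). In the fit without WT replicate 3 it called 15 higher and 3 lower (median 0.19), and in the 5 fits without another library 3 to 7 higher and 0 lower. Nfkbiz, the nuclear IkB-zeta that promotes secondary response genes, had 31.9, 40.3 and 41.5 CPM in KO cultures, against 5.47, 3.33 and 4.56 CPM in WT cultures (log2 fold change 3.08 ± 0.22, adjusted p = 0.0011). Zc3h12a, the RNase Regnase-1 that degrades cytokine transcripts, had 71.5, 75.9 and 78.7 CPM in KO cultures, against 20.1, 19 and 25.2 CPM in WT cultures (log2 fold change 1.81 ± 0.13, adjusted p = 0.00116). The WT libraries were close together for both. The inhibitor genes Nfkbia, Tnfaip3 (A20) and Tnip1 were higher by 0.71 ± 0.11, 0.70 ± 0.08 and 0.69 ± 0.11 on the log2 scale (adjusted p = 0.00977, 0.00501 and 0.0101). Sod2, a mitochondrial antioxidant enzyme, had 225, 266 and 266 CPM in KO cultures, against 99.4, 103 and 139 CPM in WT cultures (log2 fold change 1.15 ± 0.16, adjusted p = 0.00808), and Birc3 and Nfkbid were higher by 0.94 and 0.70 (adjusted p = 0.0161 and 0.0223). These 8 were all higher in KO cultures. The subunit genes Nfkb1, Rel and Relb were not called, at log2 fold changes of 0.32, 0.10 and 0.36 (adjusted p 0.129 to 0.602). The single lower member was Vcam1, an adhesion molecule, at 3.97, 5.03 and 4.21 CPM in KO cultures, against 15, 17 and 6.7 CPM in WT cultures (log2 fold change -1.55 ± 0.36, adjusted p = 0.0348). The calls of Nfkbiz, Zc3h12a and Tnfaip3 held with any 1 of the 6 libraries left out. The calls of Nfkbia and Tnip1 were lost with any 1 KO library left out (highest adjusted p 0.0699 to 0.0712), those of Nfkbid and Vcam1 with any 1 library except WT replicate 3 left out (0.107 to 0.144), those of Sod2 with KO replicate 2 or KO replicate 3 left out (0.0572), those of Birc3 with any 1 KO library or WT replicate 2 left out (0.0872).

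Chemokine genes were called in both directions, more of them lower in KO cultures, with Ccl2 and Ccl7 among the lower and Ccl5 and Cxcl16 the higher. Among 21 tested members 2 were higher, 8 lower and 11 not called, at a median log2 fold change of -1.11. Leaving out WT replicate 3 gave 5 higher and 15 lower (median -0.99), and leaving out another library 2 higher and 2 to 7 lower. Ccl2, the principal attractant of monocytes (chromosome 11, 81926397 to 81928279, plus strand), had 58.7, 72.8 and 64.1 CPM in KO cultures, against 444, 436 and 165 CPM in WT cultures (log2 fold change -2.42 ± 0.38, adjusted p = 0.0116). Its neighbour Ccl7 had 14.3, 15.5 and 14.7 CPM in KO cultures, against 130, 132 and 26.1 CPM in WT cultures (log2 fold change -2.70 ± 0.59, adjusted p = 0.0288). WT replicate 3 held less of both than the other WT libraries and more than any KO library. Ccl4 and Ccl3, inflammatory chemokines of macrophages, were lower by log2 fold changes of -1.89 ± 0.30 and -1.11 ± 0.24 (adjusted p = 0.0117 and 0.0272). Ccl6, a chemokine of mouse myeloid cells, had 5093, 4708 and 4751 CPM in KO cultures, against 8821, 9473 and 10598 CPM in WT cultures (log2 fold change -0.99 ± 0.11, adjusted p = 0.00377), and the related Ccl9 differed by -0.48 (adjusted p = 0.0181). Ccl8 and Cxcl14 were low in both genotypes and lower in KO, at log2 fold changes of -2.70 ± 0.42 and -3.20 ± 0.42 (adjusted p = 0.011 and 0.00683). The higher members were Cxcl16 and Ccl5. Cxcl16, a membrane-bound chemokine and scavenger receptor, had 396, 377 and 423 CPM in KO cultures, against 103, 102 and 78.6 CPM in WT cultures (log2 fold change 2.08 ± 0.13, adjusted p = 0.000825). Ccl5 (RANTES) had 81.6, 93.9 and 85.7 CPM in KO cultures, against 33.2, 37.4 and 27.1 CPM in WT cultures (log2 fold change 1.42 ± 0.14, adjusted p = 0.00291). The neutrophil attractants Cxcl1 and Cxcl2 were not called with WT replicate 3 (adjusted p = 0.702 and 0.883) and were higher in KO without it, by 1.92 and 2.68 on the log2 scale (adjusted p = 0.0051 and 3.92e-16). With each of the 6 libraries left out in turn, Ccl6, Cxcl16 and Ccl5 remained called. The call of Ccl7, Ccl3 and Ccl9 ended with any 1 library except WT replicate 3 left out (highest adjusted p 0.111 to 0.129), that of Ccl2 and Ccl4 with any 1 KO library left out (0.0731 to 0.0737), that of Ccl8 with KO replicate 1 or KO replicate 3 left out (0.0741), that of Cxcl14 with KO replicate 2 left out (0.0566).

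Antimicrobial and acute-phase effectors were higher in KO cultures wherever they were called with all 6 libraries. Of 27 members tested, 12 were higher and 0 lower, with a median log2 fold change of 0.66. The counts were 19 and 1 without WT replicate 3 (median 1.07), and 6 to 10 and 0 with another library left out. At an unadjusted p below 0.05 14 were higher and 0 lower, and DESeq2 called 14 and 0. The largest differences were those of Vnn3, a vanin that splits pantetheine, and Lcn2, lipocalin-2, which withholds iron from bacteria by binding their siderophores. Their promoters are shown because the genes lead the list. Each window holds the 250 bases before the start site in RefSeq's GRCm38.p6, with the match to the C/EBP core TTGCNNAA, searched on both strands, in capitals.
Vnn3, chr10:23851212-23851461, plus strand: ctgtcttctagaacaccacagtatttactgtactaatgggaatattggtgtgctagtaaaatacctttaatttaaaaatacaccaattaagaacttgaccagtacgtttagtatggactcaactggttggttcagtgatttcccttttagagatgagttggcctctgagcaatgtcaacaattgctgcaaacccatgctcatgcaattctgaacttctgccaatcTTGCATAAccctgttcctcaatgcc
Lcn2, chr2:32387740-32387989, minus strand: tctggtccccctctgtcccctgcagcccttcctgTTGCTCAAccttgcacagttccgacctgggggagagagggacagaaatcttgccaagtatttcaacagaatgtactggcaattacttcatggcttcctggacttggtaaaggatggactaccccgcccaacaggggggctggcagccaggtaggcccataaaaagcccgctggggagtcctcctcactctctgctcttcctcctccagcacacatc

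The letters TTGCNNAA began 25 bases before the start of Vnn3 and 216 bases before that of Lcn2. They stood in 9.55% of the 27025 promoter windows available, in 7.53% of the 10211 windows of tested genes, in 9.86% and 5.91% of those of genes called higher and lower, and in 6 of the 19 windows of tested antimicrobial list members (31.6%). A match is a description of these letters and not a binding site. Vnn3 had 29.4, 36.2 and 32 CPM in KO cultures, against 0.904, 0.606 and 1.1 CPM in WT cultures (log2 fold change 5.21 ± 0.23, adjusted p = 0.000497). Lcn2 had 87.1, 117 and 113 CPM in KO cultures, against 1.25, 1.57 and 5.82 CPM in WT cultures (log2 fold change 5.20 ± 0.59, adjusted p = 0.00467, 6.23 without WT replicate 3). In both genes the lowest KO library was well over the highest WT library, and for Lcn2 the highest was WT replicate 3. Saa3, an acute-phase apolipoprotein that macrophages make, had 277, 365 and 327 CPM in KO cultures, against 58.4, 56.1 and 61.3 CPM in WT cultures (log2 fold change 2.46 ± 0.13, adjusted p = 0.000497). Nos2, inducible nitric oxide synthase, had 19.9, 18.2 and 20.2 CPM in KO cultures, against 2.61, 2.42 and 0.329 CPM in WT cultures (log2 fold change 3.44 ± 0.60, adjusted p = 0.015). Acod1, which makes itaconate, had 472, 517 and 552 CPM in KO cultures, against 36.7, 37.9 and 138 CPM in WT cultures (log2 fold change 2.86 ± 0.56, adjusted p = 0.0212, 3.79 without WT replicate 3). WT replicate 3 was the lowest library for Nos2 and the highest WT library for Acod1. Hp, haptoglobin, had 202, 199.7 and 205 CPM in KO cultures, against 27.7, 30.7 and 8.23 CPM in WT cultures (log2 fold change 3.19 ± 0.47, adjusted p = 0.00945). Marco, a scavenger receptor for bacteria, had 61.8, 79.5 and 85 CPM in KO cultures, against 5.62, 7.63 and 10.6 CPM in WT cultures (log2 fold change 3.25 ± 0.26, adjusted p = 0.00169). Haptoglobin was lowest in WT replicate 3, and Marco highest there among the WT libraries. Mefv (pyrin), the cationic amino acid transporter Slc7a2, the prostaglandin synthase Ptges and the NADPH oxidase subunit Ncf4 were higher by 2.08, 1.43, 1.33 and 0.79 on the log2 scale (adjusted p = 0.000742, 0.0128, 0.0266 and 0.00288). Camp, cathelicidin, was higher at low level (log2 fold change 3.53 ± 0.63, adjusted p = 0.0163). Lyz2, the lysozyme of macrophages, was not called, at 26037, 23946 and 23919 CPM in KO cultures, against 22859, 23246 and 25641 CPM in WT cultures (adjusted p = 0.782). Left out 1 at a time, no library changed the call of Vnn3, Lcn2, Marco, Saa3, Mefv and Ncf4. Calls that were lost were those of Nos2, Hp and Slc7a2 with any 1 KO library left out (highest adjusted p 0.0553 to 0.0765), of Camp with WT replicate 1, WT replicate 2, KO replicate 2 or KO replicate 3 left out (0.0756), of Acod1 with any 1 KO library or WT replicate 2 left out (0.091), of Ptges with any 1 library except WT replicate 3 left out (0.119).

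The number of interferon-stimulated genes called higher in KO cultures depended on the fit. All 40 members were tested, and 4 were higher and 0 lower, where 15.8% of all genes tested were called in either direction. The median log2 fold change was 0.68. In 27 members every KO library lay above every WT library, against 22.9% of all genes tested. The log2 fold change was positive in 33 members. Without WT replicate 3, 19 were higher and 6 lower (median 0.50), where 49.3% of all genes tested in that fit were called. With another library left out 0 to 10 were higher and 0 lower. DESeq2 called 19 higher and 1 lower, and at an unadjusted p below 0.05 the counts were 23 and 1. The limma fit with voom called 17 higher and 0 lower, and edgeR on all 18 libraries 25 and 1. The 4 called with 6 libraries were Ddx60, a helicase that helps sense viral RNA (log2 fold change 1.57 ± 0.27, adjusted p = 0.0147), Zbp1, a sensor of Z-form nucleic acid (log2 fold change 1.15 ± 0.25, adjusted p = 0.0303), Oas1a, an oligoadenylate synthetase (log2 fold change 0.77 ± 0.18, adjusted p = 0.033), and Ifi27l2a (log2 fold change 1.10 ± 0.27, adjusted p = 0.0417). Ddx60 had 34.8, 31.2 and 38.4 CPM in KO cultures, against 11.1, 16.3 and 7.68 CPM in WT cultures. Among the WT libraries replicate 2 was highest and replicate 3 lowest. Ifit1 had 50.3, 42.7 and 55.8 CPM in KO cultures, against 9.54, 19.4 and 1.92 CPM in WT cultures (adjusted p = 0.0734), and Isg15 had 14.6, 15.1 and 20.4 CPM in KO cultures, against 5.82, 11.4 and 6.31 CPM in WT cultures (adjusted p = 0.055). Both sets of values were separate by genotype without passing the test. Gbp7, a guanylate-binding protein, had 48, 39.7 and 40.9 CPM in KO cultures, against 151, 142 and 31 CPM in WT cultures (adjusted p = 0.143), and without WT replicate 3 its log2 fold change was -1.77 (adjusted p = 4.36e-20). Ifi27l2a was the only gene named here whose call was lost without WT replicate 3 (adjusted p = 0.0642). Oas1a and the Ifit genes have close copies, so the division of their reads is uncertain. In fits short of any 1 KO library or WT replicate 1, Zbp1 and Oas1a missed the threshold (highest adjusted p 0.123 to 0.132), in fits short of any 1 KO library so did Ddx60 (0.0769), in fits short of any 1 KO library, WT replicate 1 or WT replicate 3 so did Ifi27l2a (0.146).

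Other pattern receptors were called in both directions, with Clec4e and Tlr2 the largest increases. The test called 4 of the 25 members tested higher and 3 lower (median log2 fold change 0.27). In the fit without WT replicate 3 it called 13 higher and 5 lower (median 0.34), and in the 5 fits without another library 2 to 4 higher and 0 to 1 lower. Tlr2, the receptor for bacterial lipoproteins (chromosome 3, 83743579 to 83749074, minus strand), had 440.4, 434 and 471 CPM in KO cultures, against 111, 109.6 and 79.3 CPM in WT cultures (log2 fold change 2.17 ± 0.15, adjusted p = 0.00105). Clec4e (Mincle), a receptor for mycobacterial glycolipids, had 221, 283 and 257 CPM in KO cultures, against 27.7, 28.2 and 50.9 CPM in WT cultures (log2 fold change 2.83 ± 0.27, adjusted p = 0.00288). The genotypes were well separated for both. Unc93b1, the chaperone of the endosomal toll-like receptors, had 452, 438 and 466 CPM in KO cultures, against 310.1, 327 and 221 CPM in WT cultures (log2 fold change 0.66 ± 0.16, adjusted p = 0.0377). The receptors for cell-wall peptides, Nod2 and Nod1, were not called, at log2 fold changes of 0.41 ± 0.18 and 0.16 ± 0.19 (adjusted p = 0.162 and 0.603). Their kinase Ripk2 had 22.3, 19.9 and 23.8 CPM in KO cultures, against 32.2, 36.8 and 52.7 CPM in WT cultures (log2 fold change -0.88 ± 0.20, adjusted p = 0.0318). Clec7a (Dectin-1), the receptor for fungal glucans, had 701, 607 and 616 CPM in KO cultures, against 1222, 1309 and 774 CPM in WT cultures (log2 fold change -0.78 ± 0.21, adjusted p = 0.0496), and the adaptor Mavs differed by -0.37 on the log2 scale (adjusted p = 0.0248). Both were lower in all KO libraries. Tlr7, Tlr9, Tlr13, Tlr1 and Tlr6 were not called (adjusted p 0.0846 to 0.949). Every fit short of 1 library still called Clec4e and Tlr2. The threshold was missed by Unc93b1, Mavs and Clec7a with any 1 library except WT replicate 3 left out (highest adjusted p 0.126 to 0.176), by Ripk2 with any 1 KO library or WT replicate 2 left out (0.138).

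Genes of alternative activation, the state that interleukin-4 induces, were called in both directions, more of them lower in KO cultures. Among 20 tested members 2 were higher, 5 lower and 13 not called, at a median log2 fold change of -0.75. Leaving out WT replicate 3 gave 4 higher and 14 lower (median -0.94), and leaving out another library 0 to 1 higher and 1 to 4 lower. Mgl2, a galactose-binding lectin, had 36.9, 27.3 and 29.4 CPM in KO cultures, against 331, 341 and 98.2 CPM in WT cultures (log2 fold change -3.04 ± 0.48, adjusted p = 0.0117). Cish, an inhibitor of STAT5 signalling, had 20.2, 20.5 and 21.6 CPM in KO cultures, against 119, 111 and 48.6 CPM in WT cultures (log2 fold change -2.16 ± 0.33, adjusted p = 0.011). WT replicate 3 held less of both than the other WT libraries and did not overlap KO. Il4ra, the interleukin-4 receptor, had 141, 142 and 145 CPM in KO cultures, against 252, 243 and 279 CPM in WT cultures (log2 fold change -0.86 ± 0.09, adjusted p = 0.00344). Socs2 and Egr2 were lower in KO, at log2 fold changes of -1.51 ± 0.38 and -0.86 ± 0.15 (adjusted p = 0.0424 and 0.0166). None of these groups overlapped. Mrc1, the mannose receptor CD206, had 430, 409 and 409 CPM in KO cultures, against 758, 776 and 477 CPM in WT cultures and was not called with 6 libraries (adjusted p = 0.0582). Arg1, arginase, was 1 of the 2 higher members, with 3.81, 2.15 and 2.78 CPM in KO cultures, against 0.0502, 0 and 0.439 CPM in WT cultures (log2 fold change 4.09 ± 0.84, adjusted p = 0.0244, 105-fold higher with a 95% counting interval of 18.6 to 4168 without WT replicate 3), a low level resting in WT on few counts. Chil3 (Ym1) also had higher values in KO, at 731, 909 and 848 CPM in KO cultures, against 107, 124 and 499 CPM in WT cultures, without passing the test (adjusted p = 0.0966). Retnla, Chil4, Ccl24, Cd163 and Folr2 had too few counts to test. The calls of Il4ra held with any 1 of the 6 libraries left out. The calls of Mgl2 and Cish were lost with any 1 KO library left out (highest adjusted p 0.0704 to 0.0762), those of Socs2 and Arg1 with any 1 library except WT replicate 3 left out (0.117 to 0.156), those of Egr2 with any 1 KO library or WT replicate 2 left out (0.0915).

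Growth factor and matrix remodelling genes were called in both directions, most of them lower in KO cultures. Of 27 members tested, 4 were higher and 13 lower, with a median log2 fold change of -0.65. The counts were 9 and 17 without WT replicate 3 (median -0.76), and 3 to 4 and 8 to 12 with another library left out. Plau, urokinase, which starts the breakdown of fibrin (chromosome 14, 20886728 to 20893453, plus strand), had 124, 122 and 116 CPM in KO cultures, against 560.2, 563 and 684 CPM in WT cultures (log2 fold change -2.32 ± 0.11, adjusted p = 0.000497). Its receptor Plaur had 293, 287 and 272 CPM in KO cultures, against 479, 489 and 437 CPM in WT cultures (log2 fold change -0.72 ± 0.09, adjusted p = 0.00559). Protease and receptor were thus both lower in KO cultures. Mmp13, a collagenase, had 62.8, 48.6 and 55.6 CPM in KO cultures, against 441, 485 and 324 CPM in WT cultures (log2 fold change -2.90 ± 0.19, adjusted p = 0.00083). Mmp12, the macrophage elastase, had 8024, 7344 and 7417 CPM in KO cultures, against 14385, 14613 and 13379 CPM in WT cultures (log2 fold change -0.90 ± 0.09, adjusted p = 0.00349). Adam8, a membrane protease of myeloid cells, had 243, 264 and 279 CPM in KO cultures, against 930.2, 949 and 901 CPM in WT cultures (log2 fold change -1.82 ± 0.09, adjusted p = 0.000497). The WT libraries agreed closely for both, replicate 3 included. Hbegf, a ligand of the EGF receptor, had 1.9, 1.74 and 1.55 CPM in KO cultures, against 17.5, 19 and 23.1 CPM in WT cultures (log2 fold change -3.51 ± 0.18, adjusted p = 0.000497). Gas6, the ligand of the TAM receptors, had 45.1, 38.5 and 36.9 CPM in KO cultures, against 95.8, 111 and 84.1 CPM in WT cultures (log2 fold change -1.27 ± 0.14, adjusted p = 0.00404), and Pdgfa, Ccn3, Timp1 and Timp3 were lower at log2 fold changes of -0.65, -1.28, -2.21 and -3.03 (adjusted p = 0.0101, 0.00795, 0.00494 and 0.0358).

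In the other direction, Mmp2, gelatinase A, had 196, 216 and 212 CPM in KO cultures, against 31.6, 32 and 40 CPM in WT cultures (log2 fold change 2.59 ± 0.12, adjusted p = 0.000497). Mmp14, the membrane protease that activates it, had 711, 713 and 766 CPM in KO cultures, against 223, 228 and 128 CPM in WT cultures (log2 fold change 1.92 ± 0.23, adjusted p = 0.00532). Tgfbi, a matrix protein induced by TGF-beta, had 806, 846 and 903 CPM in KO cultures, against 255, 233 and 118 CPM in WT cultures (log2 fold change 2.07 ± 0.29, adjusted p = 0.00811). All KO libraries lay above all WT libraries for these genes, with WT replicate 3 lowest for Mmp14 and Tgfbi and highest of the WT libraries for Mmp2. Serpinb2 (PAI-2) was higher as well (log2 fold change 0.98 ± 0.12, adjusted p = 0.00583). Fibroblast and stroma markers differed in the same cultures. Summed over 20 markers they held 489 to 549 CPM in KO cultures and 209.7 to 702 CPM in WT cultures, and without Fstl1 39.5 to 44.1 CPM in KO cultures and 143 to 573 CPM in WT cultures over 18 tested markers. Their part in the differences of matrix genes was not tested. With each of the 6 libraries left out in turn, Plau, Mmp13, Mmp12, Adam8, Hbegf, Gas6, Timp1, Mmp2, Mmp14 and Serpinb2 remained called. The call of Plaur, Ccn3 and Tgfbi ended with KO replicate 2 or KO replicate 3 left out (highest adjusted p 0.0509 to 0.0572), that of Pdgfa with any 1 KO library left out (0.0712), that of Timp3 with any 1 library except WT replicate 3 left out (0.148).

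Scavenger and phagocytic receptors were called in both directions. The test called 5 of the 29 members tested higher and 6 lower (median log2 fold change -0.09). In the fit without WT replicate 3 it called 12 higher and 13 lower (median 0.11), and in the 5 fits without another library 3 to 4 higher and 1 to 5 lower. Siglec1, the sialoadhesin of tissue macrophages, had 97.9, 87.1 and 102 CPM in KO cultures, against 16.7, 26.1 and 12.5 CPM in WT cultures (log2 fold change 2.38 ± 0.27, adjusted p = 0.0047). Cd36, which takes up oxidised lipoproteins and fatty acids, had 250.4, 232 and 243 CPM in KO cultures, against 721, 847 and 1582 CPM in WT cultures (log2 fold change -2.12 ± 0.30, adjusted p = 0.00879). Tyro3, a receptor for dying cells, had 3.07, 2.65 and 3.28 CPM in KO cultures, against 26, 27.3 and 9.99 CPM in WT cultures (log2 fold change -2.81 ± 0.41, adjusted p = 0.00904), whereas its relatives Mertk and Axl were not called (adjusted p = 0.192 and 0.963). The Tyro3 groups did not overlap. Trem2, a lipid-sensing receptor, and Scarb1, the receptor for high-density lipoprotein, were higher by 0.50 and 0.63 on the log2 scale (adjusted p = 0.0158 and 0.00532). The Fc receptor gene Fcgr3 differed by -0.58 and the integrin gene Itgam (CD11b) by -0.41 (adjusted p = 0.0406 and 0.0188). Left out 1 at a time, no library changed the call of Siglec1. Calls that were lost were those of Cd36 and Tyro3 with any 1 KO library left out (highest adjusted p 0.0639 to 0.0642), of Trem2 and Itgam with any 1 library except WT replicate 3 left out (0.0963 to 0.117), of Scarb1 with KO replicate 2 left out (0.051), of Fcgr3 with any 1 KO library or WT replicate 2 left out (0.162).

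Abca1, Pltp, Mylip and Srebf1 were higher in KO cultures, and the whole list of lipid handling genes and LXR targets was called in both directions. Among 24 tested members 5 were higher, 3 lower and 16 not called, at a median log2 fold change of -0.10. Leaving out WT replicate 3 gave 9 higher and 11 lower (median -0.17), and leaving out another library 2 to 4 higher and 1 to 4 lower. Abca1, which loads cholesterol onto apolipoproteins and is a classic target of the sterol sensor LXR, had 573, 548 and 600.2 CPM in KO cultures, against 219, 250.4 and 112 CPM in WT cultures (log2 fold change 1.57 ± 0.29, adjusted p = 0.0178). Pltp, a phospholipid transfer protein, had 99.5, 86.5 and 109.7 CPM in KO cultures, against 24.9, 30.6 and 14.2 CPM in WT cultures (log2 fold change 2.08 ± 0.28, adjusted p = 0.00754). The LXR targets Mylip and Srebf1 were higher by 0.82 ± 0.13 and 0.71 ± 0.08 (adjusted p = 0.0114 and 0.00492). WT replicate 3 was the lowest library for Abca1 and Pltp. The exporter Abcg1 was not called, at 506, 479.7 and 483 CPM in KO cultures, against 642, 692 and 428 CPM in WT cultures (adjusted p = 0.355). Lpl, lipoprotein lipase, had 3398, 3540.2 and 3350.1 CPM in KO cultures, against 6098, 6389.8 and 3276 CPM in WT cultures and was not called with 6 libraries (adjusted p = 0.141), with WT replicate 3 at the KO level. Ctsl, cathepsin L, had 746, 759 and 737 CPM in KO cultures, against 1582, 1798 and 2579.5 CPM in WT cultures (log2 fold change -1.41 ± 0.19, adjusted p = 0.00759), and Cd5l (AIM) was lower at a low level (log2 fold change -2.00 ± 0.24, adjusted p = 0.00514). No single library decided the call of Pltp, Srebf1 and Cd5l. In fits short of any 1 KO library, Abca1, Mylip and Ctsl missed the threshold (highest adjusted p 0.0585 to 0.0841).

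Cholesterol synthesis genes were higher in KO cultures at several steps of the pathway. Of 24 members tested, 8 were higher and 0 lower, with a median log2 fold change of 0.72. The counts were 19 and 1 without WT replicate 3 (median 0.49), and 0 to 5 and 0 with another library left out. At an unadjusted p below 0.05 16 were higher and 0 lower, and DESeq2 called 13 and 0. In 18 of the 24 members all KO libraries lay above all WT libraries, against 22.9% of all genes tested. Mvk, mevalonate kinase, had 20.5, 19.5 and 18.9 CPM in KO cultures, against 6.83, 8 and 3.02 CPM in WT cultures (log2 fold change 1.72 ± 0.34, adjusted p = 0.0221). Lss, which closes the sterol ring, had 36.2, 40.8 and 41.3 CPM in KO cultures, against 21.1, 16.4 and 22.4 CPM in WT cultures (log2 fold change 0.98 ± 0.14, adjusted p = 0.00947). WT replicate 3 was the lowest library for Mvk and the highest WT library for Lss. Sqle, Pmvk, Fdft1, Stard4 and Insig1 were higher by 0.92, 0.83, 0.70, 0.64 and 0.40 on the log2 scale (adjusted p 0.0131 to 0.0458). The regulator Srebf2 was not called (log2 fold change 0.45, adjusted p = 0.15). The threshold was missed by Lss, Pmvk and Fdft1 with any 1 KO library left out (highest adjusted p 0.065 to 0.09), by Stard4 and Insig1 with any 1 library except WT replicate 3 left out (0.154 to 0.16), by Mvk with any 1 KO library or WT replicate 1 left out (0.0977), by Sqle with any 1 KO library or WT replicate 2 left out (0.0806). The promoters of Mvk and Lss are printed with the CCAAT box, to which NF-Y binds beside the sterol-responsive factor SREBP-2 in this pathway, in capitals, as CCAAT or as ATTGG where it lies on the other strand.
Mvk, chr5:114444019-114444268, plus strand: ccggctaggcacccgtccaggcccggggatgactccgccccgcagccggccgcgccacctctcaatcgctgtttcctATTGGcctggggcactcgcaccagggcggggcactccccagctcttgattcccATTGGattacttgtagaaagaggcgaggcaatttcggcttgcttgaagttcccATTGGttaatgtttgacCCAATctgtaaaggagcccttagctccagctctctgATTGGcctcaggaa
Lss, chr10:76531355-76531604, plus strand: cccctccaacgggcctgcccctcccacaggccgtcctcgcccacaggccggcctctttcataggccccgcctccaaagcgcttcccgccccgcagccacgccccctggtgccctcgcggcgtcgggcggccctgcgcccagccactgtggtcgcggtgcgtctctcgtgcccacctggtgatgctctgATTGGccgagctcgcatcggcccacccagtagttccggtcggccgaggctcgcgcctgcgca

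Mvk held 5 matches within 173 bases of its start and Lss 1, at 62 bases. CCAAT, searched on both strands, stood in 34.5% of all promoter windows of 250 bases, 36.7% of those of tested genes, 41.4% and 32.7% of those of genes called higher and lower, and 15 of the 17 windows of tested cholesterol synthesis genes (88.2%). The TTGCNNAA and CCAAT searches were separate, and their matches may overlap.

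Cell cycle genes were higher in KO cultures where they were called, mitotic cyclins among them, with the exception of Ccnd1. The test called 11 of the 34 members tested higher and 1 lower (median log2 fold change 1.55). In the fit without WT replicate 3 it called 31 higher and 2 lower (median 1.16), and in the 5 fits without another library 0 to 6 higher and 0 lower. In 31 of 34 members every KO library lay above every WT library, against 22.9% of all genes tested. Mki67, the marker of dividing cells, had 279, 263 and 267 CPM in KO cultures, against 98, 87.2 and 40.9 CPM in WT cultures (log2 fold change 1.84 ± 0.31, adjusted p = 0.014). Ccnb1, cyclin B1, had 48.2, 46 and 42.9 CPM in KO cultures, against 13.7, 10.8 and 1.92 CPM in WT cultures (log2 fold change 2.37 ± 0.61, adjusted p = 0.0461). Ccnb2 had 26, 25.5 and 25.2 CPM in KO cultures, against 7.18, 5.88 and 2.09 CPM in WT cultures (log2 fold change 2.34 ± 0.41, adjusted p = 0.0157). WT replicate 3 was the lowest library for each, well below WT replicates 1 and 2. Bub1, Birc5 (survivin), Cdc20 and Cdk1 were higher by 2.05, 1.76, 1.80 and 1.36 on the log2 scale (adjusted p = 0.0117, 0.0278, 0.045 and 0.0461). The replication licensing genes Mcm2, Mcm3, Mcm4 and Mcm6 were not called, at 0.24 to 0.47 (adjusted p 0.172 to 0.566). Ccnd1, cyclin D1, which responds to growth factors and adhesion, was the single lower member, with 13.1, 11.4 and 11.7 CPM in KO cultures, against 278, 250 and 28.3 CPM in WT cultures (log2 fold change -3.94 ± 0.81, adjusted p = 0.0246). WT replicate 3 held far less of it than the other WT libraries and more than the KO libraries. The calls of Ccnb1, Cdc20, Cdk1 and Ccnd1 were lost with any 1 library except WT replicate 3 left out (highest adjusted p 0.117 to 0.155), those of Mki67 and Bub1 with any 1 KO library left out (0.0672 to 0.0718), those of Ccnb2 and Birc5 with any 1 KO library or WT replicate 2 left out (0.0774 to 0.112). The promoters of the cyclin genes Ccnb1 and Ccnb2 are shown with CCAAT in capitals, because NF-Y at CCAAT boxes is known to drive genes of mitosis.
Ccnb1, chr13:100786487-100786736, minus strand: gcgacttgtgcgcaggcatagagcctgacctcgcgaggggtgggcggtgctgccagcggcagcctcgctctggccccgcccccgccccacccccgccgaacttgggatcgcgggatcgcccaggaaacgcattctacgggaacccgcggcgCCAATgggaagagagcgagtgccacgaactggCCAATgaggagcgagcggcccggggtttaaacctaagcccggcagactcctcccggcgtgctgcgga
Ccnb2, chr9:70421555-70421804, minus strand: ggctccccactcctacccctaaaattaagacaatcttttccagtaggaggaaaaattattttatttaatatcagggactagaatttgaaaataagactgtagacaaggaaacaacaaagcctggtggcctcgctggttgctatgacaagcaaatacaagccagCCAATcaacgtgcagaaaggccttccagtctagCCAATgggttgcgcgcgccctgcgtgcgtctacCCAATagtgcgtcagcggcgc

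Ccnb1 held 2 matches, 99 and 67 bases before its start, and Ccnb2 held 3, from 87 to 21 bases before it. The box stood in 23 of the 28 windows of tested cell cycle genes (82.1%), against 36.7% of the windows of all tested genes.

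**Figure D4:**
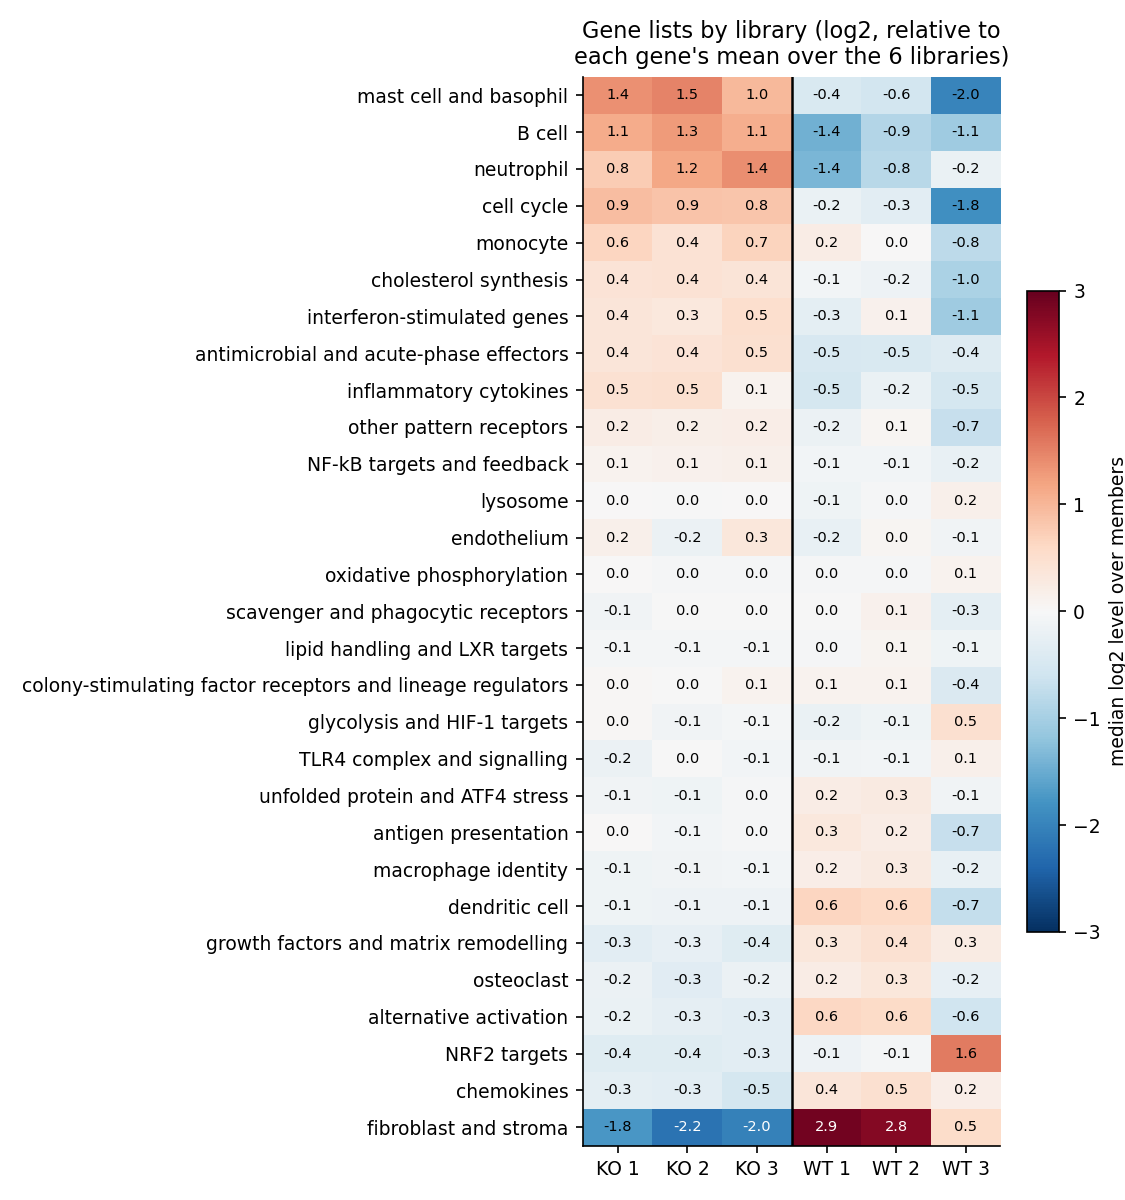
Median level of each gene list (vertical axis) in each of the 6 libraries (horizontal axis, KO left of WT), as the log2 level relative to each gene's own mean over the 6. The KO libraries were alike, and WT replicate 3 differed from WT replicates 1 and 2 in many lists, being lower for cell cycle genes and higher for NRF2 targets.

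Of 134 tested members of 5 stress and metabolic lists 20 were called (14.9%), against 15.8% of all genes tested, and WT replicate 3 lay apart from all other libraries for Hmox1 and Gclc, both NRF2 targets. None of 25 NRF2 targets, the antioxidant programme, was called by edgeR with 6 libraries, at a median of -0.85. At an unadjusted p below 0.05 0 were higher and 12 lower, and DESeq2 called 0 higher and 10 lower. Without WT replicate 3, 6 were higher and 14 lower (median -0.31). Hmox1, heme oxygenase, had 373, 379.9 and 401 CPM in KO cultures, against 550.4, 671 and 1837 CPM in WT cultures (adjusted p = 0.085), and Gclc, which makes glutathione, had 27.7, 29.9 and 29.6 CPM in KO cultures, against 47.9, 52.6 and 224 CPM in WT cultures (adjusted p = 0.0867). In both the WT replicate 3 library lay far above the others. Among 27 glycolysis and HIF-1 targets, 2 were higher and 4 lower, against 12 and 6 without WT replicate 3. Bnip3 (mitophagy) and Pdk1, which keeps pyruvate out of mitochondria, were higher by 1.09 and 1.09 on the log2 scale (adjusted p = 0.0211 and 0.0268). Hk3, Pfkp and Ndrg1 were lower, at -0.63, -0.73 and -0.93 (adjusted p = 0.0124, 0.00492 and 0.00878). Adm, adrenomedullin, had 0.159, 0.228 and 0.124 CPM in KO cultures, against 2.36, 3.33 and 5.54 CPM in WT cultures (log2 fold change -4.37 ± 0.49, adjusted p = 0.00437). Of 26 genes of oxidative phosphorylation 1 was higher (Sdhb) and 2 lower (Cycs and Cox5a), at a median of -0.05, against 9 and 5 without WT replicate 3. Of 27 genes of the unfolded protein and ATF4 responses 1 was higher (Asns) and 5 lower (Calr, Atf3, Ddit3, Sesn2 and Pdia4), against 5 and 16 without WT replicate 3. Pdia4, a disulfide isomerase, had 179.7, 177 and 174 CPM in KO cultures, against 478, 494 and 299.9 CPM in WT cultures (log2 fold change -1.26 ± 0.20, adjusted p = 0.0111). Of 29 lysosomal genes, 2 were higher, Ctsh among them, and 3 lower (Tpp1, Atp6v0d2 and Ctsl), against 13 and 8 without WT replicate 3. With a library other than WT replicate 3 left out, these 5 lists gave 0, 0 to 1, 0, 0 and 0 to 1 higher and 0 to 1, 2 to 4, 0 to 1, 1 to 3 and 0 to 3 lower, in the order above. With each of the 6 libraries left out in turn, Pfkp, Adm and Sesn2 remained called. The call of Bnip3, Sdhb, Cycs, Asns, Calr, Ddit3, Ctsh and Tpp1 ended with any 1 library except WT replicate 3 left out (highest adjusted p 0.0997 to 0.175), that of Hk3, Atf3, Pdia4, Ctsl and Atp6v0d2 with any 1 KO library left out (0.0585 to 0.103), that of Ndrg1 and Cox5a with KO replicate 2 or KO replicate 3 left out (0.0532 to 0.0621), that of Pdk1 with any 1 KO library or WT replicate 2 left out (0.117).

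MHC class II genes were lower in KO than in WT replicates 1 and 2, and WT replicate 3 was lower still. With 6 libraries no member of 27 antigen presentation genes was higher and 1 lower (median -0.29), against 6 higher and 17 lower without WT replicate 3 (median -0.32). DESeq2 called 1 higher and 1 lower, and at an unadjusted p below 0.05 the counts were 3 and 3. With another library left out 0 were higher and 0 to 1 lower. H2-Ab1 had 546, 503.8 and 524 CPM in KO cultures, against 1151, 1069.9 and 235 CPM in WT cultures, and H2-Eb1 had 371, 359 and 385 CPM in KO cultures, against 908, 829 and 184 CPM in WT cultures. The invariant chain Cd74 had 2380.4, 2099 and 2242 CPM in KO cultures, against 4662, 4479 and 1883 CPM in WT cultures. For these genes the KO libraries lay between WT replicate 3 and the other WT libraries, so the order depends on that library (adjusted p with 6 libraries 0.184 to 0.437). The costimulator Cd80 was the called member, with 31.7, 37.3 and 36.1 CPM in KO cultures, against 55.2, 49.7 and 65.8 CPM in WT cultures (log2 fold change -0.70 ± 0.13, adjusted p = 0.0192). Calls that were lost were those of Cd80 with any 1 KO library left out (highest adjusted p 0.104).

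Receptors for colony-stimulating factors and regulators of the myeloid lineages were called in both directions. Of 25 receptor and lineage regulator genes, 4 were higher and 2 lower (median -0.10), against 11 and 12 without WT replicate 3 and 1 to 4 and 0 to 1 with another library left out. Csf3r, the receptor for G-CSF, had 42.9, 49.2 and 49.1 CPM in KO cultures, against 13.7, 14.8 and 6.97 CPM in WT cultures (log2 fold change 1.99 ± 0.28, adjusted p = 0.00853). Csf1r, the M-CSF receptor on which these cells depend, had 1142, 1095 and 1166 CPM in KO cultures, against 815, 818 and 649.8 CPM in WT cultures (log2 fold change 0.58 ± 0.12, adjusted p = 0.0232). Cebpe, a regulator of granulocyte maturation, had 4.66, 5.16 and 5.26 CPM in KO cultures, against 0.853, 0.909 and 1.04 CPM in WT cultures (log2 fold change 2.42 ± 0.22, adjusted p = 0.00224). Il3ra, the alpha chain of the interleukin-3 receptor, was higher by 0.66 on the log2 scale (adjusted p = 0.0122). The higher receptor genes were thus Csf3r, Csf1r and Il3ra, and for interleukin-3 this covers the alpha chain only. Csf2rb, the shared beta chain of the GM-CSF receptor, had 1954, 1958 and 1897 CPM in KO cultures, against 3127, 3059 and 2438 CPM in WT cultures (log2 fold change -0.57 ± 0.12, adjusted p = 0.0254), and its near-identical copy Csf2rb2 differed by -0.60 (adjusted p = 0.00878), so the division of reads between them is uncertain. The master regulator Spi1 (PU.1) was not called, at 300.5, 296 and 291 CPM in KO cultures, against 337, 345 and 315 CPM in WT cultures (adjusted p = 0.197). Of 10 osteoclast genes, 1 was higher and 2 lower, against 2 and 7 without WT replicate 3 and 1 and 0 to 2 with another library left out. Ctsk, the collagen-degrading cathepsin K, was the higher one, with 180.3, 172 and 192 CPM in KO cultures, against 26.1, 29.6 and 43.1 CPM in WT cultures (log2 fold change 2.46 ± 0.20, adjusted p = 0.00175). Car2, carbonic anhydrase, had 10, 11.2 and 13.3 CPM in KO cultures, against 34, 34.3 and 14.9 CPM in WT cultures (log2 fold change -1.27 ± 0.33, adjusted p = 0.0487). Atp6v0d2, a proton pump subunit of osteoclasts and other macrophages, had 615, 617 and 591 CPM in KO cultures, against 1073, 1121 and 1595 CPM in WT cultures (log2 fold change -1.06 ± 0.17, adjusted p = 0.0116). No single library decided the call of Cebpe and Ctsk. In fits short of any 1 KO library, Il3ra, Csf2rb2 and Atp6v0d2 missed the threshold (highest adjusted p 0.0683 to 0.0758), in fits short of any 1 library except WT replicate 3 so did Csf2rb and Car2 (0.125 to 0.177), in fits short of KO replicate 2 or KO replicate 3 so did Csf3r (0.0548), in fits short of any 1 KO library or WT replicate 2 so did Csf1r (0.112).

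Macrophage markers were present in every library of both genotypes, and some were higher in KO and others lower. Summed over 20 markers they held 36876 to 39708 CPM in KO cultures and 35673 to 38245 CPM in WT cultures, and none was at 0 in either group. Of the 20 tested, 4 were higher and 3 lower (median -0.31), against 7 and 11 without WT replicate 3 and 1 to 3 and 0 to 1 with another library left out. Adgre1 (F4/80), the classical marker, had 1098, 1201 and 1265 CPM in KO cultures, against 710.1, 741 and 698 CPM in WT cultures (log2 fold change 0.73 ± 0.09, adjusted p = 0.00628). C1qa, a complement subunit typical of resident macrophages, had 12.6, 13.3 and 10.9 CPM in KO cultures, against 78.2, 96.5 and 26.5 CPM in WT cultures (log2 fold change -2.44 ± 0.46, adjusted p = 0.019). Its partners C1qb and C1qc were not called with 6 libraries (adjusted p = 0.11 and 0.0571), with WT replicate 3 near the KO level, and were lower in KO without it, at -1.70 and -1.80 on the log2 scale. Laptm5, a lysosomal membrane protein of blood cells, differed by -0.62 ± 0.10 (adjusted p = 0.0107). The threshold was missed by Adgre1 with KO replicate 2 or KO replicate 3 left out (highest adjusted p 0.0545), by Laptm5 with any 1 KO library left out (0.0806), by C1qa with any 1 library except WT replicate 3 left out (0.0992).

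Several markers of monocytes and of neutrophils were higher in KO cultures. Ly6c2, the surface marker of inflammatory monocytes, had 362, 372 and 368 CPM in KO cultures, against 16.8, 16.1 and 36.5 CPM in WT cultures (log2 fold change 3.99 ± 0.35, adjusted p = 0.00224). The KO libraries agreed closely, and WT replicate 3 was the highest of the WT libraries. Ly6c2 has close copies, so some of its reads may belong to them. Gpr141 had 359, 332 and 339.5 CPM in KO cultures, against 129, 134 and 127 CPM in WT cultures (log2 fold change 1.40 ± 0.08, adjusted p = 0.000648), and Plac8 was higher at a low level (log2 fold change 2.59 ± 0.40, adjusted p = 0.011). Of 12 monocyte markers 3 were higher and 1 lower, against 6 and 3 without WT replicate 3, and their summed level was 1728 to 1852 CPM in KO cultures and 569 to 843 CPM in WT cultures. Ccr2, the receptor for Ccl2, had 91.2, 85.7 and 91.4 CPM in KO cultures, against 58.6, 48.8 and 5.54 CPM in WT cultures and was not called with 6 libraries (adjusted p = 0.269). Of 11 tested neutrophil markers, 5 were higher and 0 lower, against 9 and 0 without WT replicate 3. At an unadjusted p below 0.05 8 were higher and 0 lower, and DESeq2 called 6 and 0. They were Lcn2, Camp, Csf3r, Ngp and Ctsg, of which the granule protein Ngp had 3.76, 8.77 and 7.67 CPM in KO cultures, against 0.904, 0.303 and 2.09 CPM in WT cultures (log2 fold change 2.60 ± 0.65, adjusted p = 0.0425, 3.41 without WT replicate 3). Ctsg, cathepsin G, had 3 counts in WT, a scaled ratio of KO over WT of 17.3 (95% counting interval 5.60 to 86.4). Without WT replicate 2 it was 36.2 (6.22 to 1454) and without WT replicate 3 11.5 (3.74 to 57.6). S100a8 had 46.2, 74.3 and 60.1 CPM in KO cultures, against 4.02, 4.78 and 35.7 CPM in WT cultures and was not called (adjusted p = 0.15). The defining neutrophil genes Ly6g and Retnlg had at most 1 count in any library, and Elane at most 2. The summed level of the 15 neutrophil markers was 2489.6 to 2534 CPM in KO cultures and 1574 to 2378 CPM in WT cultures, most of it from Mmp8, which macrophages also express, and the part of other cells in these differences was not tested. With another library left out, 2 to 3 monocyte and 1 to 3 neutrophil markers were higher and 0 to 1 and 0 lower. The calls of Ly6c2 and Gpr141 held with any 1 of the 6 libraries left out. The calls of Plac8 were lost with KO replicate 2 or KO replicate 3 left out (highest adjusted p 0.0687), those of Ctsg with any 1 KO library left out (0.0807), those of Ngp with any 1 library except WT replicate 3 left out (0.155).

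Fibroblast and stroma markers were lower in KO cultures by a wide margin, and at low levels. Of 19 tested, 1 was higher and 16 lower, with a median log2 fold change of -4.61, against -0.02 over all genes tested. Without WT replicate 3 the counts were 1 and 18 (median -4.89), and with another library left out 1 and 5 to 12. Sparc, a collagen-binding matrix protein, had 1.01, 0.868 and 0.742 CPM in KO cultures, against 40.7, 45.5 and 13.3 CPM in WT cultures (log2 fold change -5.23 ± 0.55, adjusted p = 0.00377). Bgn, biglycan, had 0.635, 0.594 and 1.24 CPM in KO cultures, against 69.8, 72.4 and 24.3 CPM in WT cultures (log2 fold change -6.10 ± 0.57, adjusted p = 0.00273). The order was the same for each: KO near 0, WT replicate 3 intermediate, and WT replicates 1 and 2 highest. Col1a1, a chain of type I collagen, had 2.17, 0.457 and 0.557 CPM in KO cultures, against 46.7, 37.1 and 5.05 CPM in WT cultures (log2 fold change -4.80 ± 1.01, adjusted p = 0.0259, -5.86 without KO replicate 1). Col1a2, the other chain, had 2.43, 1.05 and 1.18 CPM in KO cultures, against 71.6, 62.4 and 8.23 CPM in WT cultures (log2 fold change -4.93 ± 0.89, adjusted p = 0.0169). Col3a1 had 0.423, 0.0457 and 0.247 CPM in KO cultures, against 42.2, 35.2 and 1.43 CPM in WT cultures (log2 fold change -6.79 ± 1.44, adjusted p = 0.0267, -7.54 without KO replicate 1). Type I and type III collagen thus followed the same order. Pdgfra, a receptor that marks stromal cells, was unlike them in that WT replicate 3 was the highest, with 0.265, 0.457 and 0.309 CPM in KO cultures, against 7.78, 8.54 and 9.71 CPM in WT cultures (log2 fold change -4.61 ± 0.27, adjusted p = 0.000659). Dcn, Fbn1, Col5a2, Col6a1, Tagln, Postn, Lepr, Pdgfrb and Acta2 were lower as well, at log2 fold changes of -5.74 to -1.61. Fstl1, a secreted glycoprotein, was the higher member, with 505, 456 and 447 CPM in KO cultures, against 128, 125 and 66.5 CPM in WT cultures (log2 fold change 2.14 ± 0.26, adjusted p = 0.00557). Thy1 and Col5a1 were not called (adjusted p = 0.908 and 0.104), and Lum had at most 6 counts. With each of the 6 libraries left out in turn, Sparc, Bgn, Pdgfra, Fstl1, Dcn and Col5a2 remained called. The call of Col1a2, Fbn1, Col6a1 and Tagln ended with any 1 KO library left out (highest adjusted p 0.0566 to 0.0948), that of Col1a1, Col3a1, Pdgfrb and Acta2 with any 1 library except WT replicate 3 left out (0.122 to 0.166), that of Postn with KO replicate 1 or KO replicate 3 left out (0.0525), that of Lepr with KO replicate 2 or KO replicate 3 left out (0.0563).

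Traces of other marrow lineages differed between the genotypes. Mast cell and basophil markers were higher in KO cultures where they were called with 6 libraries, 5 of 8 tested and 0 lower, against 5 and 2 without WT replicate 3 and 2 to 3 and 0 with another library left out. DESeq2 called 5 higher and 0 lower, and at an unadjusted p below 0.05 the counts were 5 and 0. Their summed level was 63.2, 68.3 and 73.7 CPM in KO cultures and 66.3, 61.1 and 21.4 CPM in WT cultures, so the groups overlapped. Prss34 had 11.5, 11.2 and 16 CPM in KO cultures, against 0.653, 0.666 and 0.384 CPM in WT cultures (log2 fold change 4.49 ± 0.29, adjusted p = 0.000825), and Mcpt8, a protease of basophils, had 7.09, 5.76 and 6.37 CPM in KO cultures, against 0.452, 0.303 and 0.494 CPM in WT cultures (log2 fold change 3.91 ± 0.27, adjusted p = 0.00091). WT cultures were below 1 CPM for both. Fcer1a, a chain of the IgE receptor, had 3 counts in WT, a scaled ratio of KO over WT of 22.7 (95% counting interval 7.46 to 113). Its WT counts were all in replicate 2, without which the fold was at least 15.8, against 14.4 (4.74 to 71.6) without WT replicate 1. Ms4a2, another chain of that receptor, was higher (log2 fold change 4.11 ± 0.88, adjusted p = 0.0271, at least 22.8-fold higher without WT replicate 1 against a floor of 3 counts). Cpa3, a mast cell protease, was higher as well (log2 fold change 2.13 ± 0.54, adjusted p = 0.0447), while Kit and Gata2 were not called (adjusted p = 0.332 and 0.448). Kit and Gata2 were among the 3 tested members not called with 6 libraries, and 2 of these 3 were lower in KO without WT replicate 3. The B cell markers held 17.5 to 22.1 CPM in KO cultures and 4.88 to 33.3 CPM in WT cultures in all, with 3 of 6 tested higher and 1 lower, against 4 and 2 without WT replicate 3 and 0 to 3 and 1 with another library left out. Cd79b and Ms4a1 (CD20) had 3 and 2 counts in WT, with ratios of KO over WT of 39.3 (13.1 to 193) and 36.5 (9.75 to 307). These WT counts were all in replicate 3, without which the folds were at least 26.2 and 16.2, against 25 (8.36 to 123) and 23.2 (6.2 to 195) without WT replicate 1. The defining gene Pax5 had 8 to 14 counts in KO libraries and none in WT libraries, too few to test. Igkc was higher (log2 fold change 2.88 ± 0.75, adjusted p = 0.0477) and Ebf1, which stromal cells also express, lower (log2 fold change -4.69 ± 0.57, adjusted p = 0.00544, 46-fold lower with a 95% counting interval of 12.5 to 383 without KO replicate 1). Left out 1 at a time, no library changed the call of Prss34, Mcpt8 and Ebf1. Calls that were lost were those of Cd79b and Ms4a1 with any 1 KO library left out (highest adjusted p 0.0718 to 0.0724), of Cpa3 and Igkc with any 1 library except WT replicate 3 left out (0.147 to 0.171), of Fcer1a with any 1 KO library or WT replicate 1 left out (0.136), of Ms4a2 with any 1 KO library or WT replicate 2 left out (0.117).

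Dendritic cell markers were lower where they were called, 3 of 12 tested and 0 higher, against 9 lower and 0 higher without WT replicate 3 and 1 to 2 lower and 0 higher with another library left out. At an unadjusted p below 0.05 0 were higher and 5 lower, and DESeq2 called 0 and 5. They were Itgax, Clec9a, a receptor for dead cells (log2 fold change -0.91 ± 0.17, adjusted p = 0.018), and Kmo, an enzyme of tryptophan breakdown, with 2.12, 1.14 and 1.36 CPM in KO cultures, against 37.6, 27.9 and 2.2 CPM in WT cultures (log2 fold change -3.87 ± 0.98, adjusted p = 0.0453, -3.28 without WT replicate 1). Cd209a, a lectin of dendritic cells, had 1, 0 and 1 counts in KO libraries and 441, 291 and 4 in WT libraries, and did not pass the filter with all 6 because only WT replicates 1 and 2 held it. Mmp3, stromelysin, showed the same division, with 0, 0 and 1 counts in KO libraries and 73, 51 and 2 in WT libraries. Endothelial markers held 529 to 565 CPM in KO cultures and 289.6 to 398 CPM in WT cultures, most of it from Vwf, the called member of 7 tested, at 459, 435 and 450.2 CPM in KO cultures, against 280, 283 and 193 CPM in WT cultures (log2 fold change 0.83 ± 0.16, adjusted p = 0.0203). The 12 T and NK cell markers held 6.03 to 7.86 CPM in KO cultures and 7.74 to 14.3 CPM in WT cultures, 2 passed the filter, and Cd4 was lower in KO (log2 fold change -1.0 ± 0.18, adjusted p = 0.0163). Of the erythroid and megakaryocyte markers 3 passed the filter and none was called by edgeR, with an unadjusted p below 0.05 in 1 of them (Pf4), and DESeq2 called 1 lower. Pf4, a platelet chemokine that macrophages also make, had 47.7, 55.2 and 51 CPM in KO cultures, against 86.8, 96.2 and 236 CPM in WT cultures (adjusted p = 0.0541). The part of these cells in the differences of other lists was not tested. No single library decided the call of Itgax. In fits short of any 1 KO library, Clec9a and Vwf missed the threshold (highest adjusted p 0.096 to 0.0996), in fits short of any 1 library except WT replicate 3 so did Kmo and Cd4 (0.0936 to 0.17).

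A knockout allele can carry flanking DNA of the strain in which it was made, so genes around Tlr4 on chromosome 4 were read as well. Within 5 Mb on either side, 28 genes other than Tlr4 were tested, 5 were higher and 3 lower (28.6%), against 15.8% of all genes tested. The lower genes include ENSMUSG00000121059, which lies within Tlr4 and is not a flanking gene. Without WT replicate 3 the count of 8 was 17, where 49.3% of all genes tested were called. With a KO library left out it was 2, where 353 to 405 genes were called in all, and without WT replicate 1 or 2 it was 5 or 3. Within 10 Mb 6 of 52 were higher and 9 lower (28.8%), and within 20 Mb 11 of 98 were higher and 12 lower (23.5%). Slc31a2, a copper transporter (chromosome 4, 62180799 to 62216648, plus strand), had 169, 181 and 164 CPM in KO cultures, against 92.8, 98.8 and 97.9 CPM in WT cultures (log2 fold change 0.83 ± 0.08, adjusted p = 0.00311). The groups were well apart. Its neighbour Slc31a1, the main copper importer, was higher by 0.78 ± 0.15 (adjusted p = 0.019). Megf9 (chromosome 4, 70345302 to 70453232, minus strand) had 26.3, 26 and 28.2 CPM in KO cultures, against 14.5, 11.2 and 17.2 CPM in WT cultures (log2 fold change 0.90 ± 0.17, adjusted p = 0.019). The others were 4933430I17Rik and Tnfsf15, higher, and Tnc, tenascin-C, Col27a1, a fibrillar collagen, and ENSMUSG00000121059, lower. Tnc had 0.423, 0.457 and 1.24 CPM in KO cultures, against 15.3, 15.1 and 3.46 CPM in WT cultures (log2 fold change -4.03 ± 0.73, adjusted p = 0.0169, -4.66 without KO replicate 3), and Col27a1 had 1.75, 2.15 and 1.79 CPM in KO cultures, against 9.19, 8.24 and 4.17 CPM in WT cultures (log2 fold change -1.92 ± 0.34, adjusted p = 0.0155). Any flanking sequence and the knockout itself cannot be told apart. Every fit short of 1 library still called Slc31a2 and ENSMUSG00000121059. The threshold was missed by Tnfsf15, Tnc and Col27a1 with any 1 KO library or WT replicate 2 left out (highest adjusted p 0.0874 to 0.095), by Slc31a1 and 4933430I17Rik with any 1 library except WT replicate 3 left out (0.0994 to 0.175), by Megf9 with any 1 KO library or WT replicate 1 left out (0.0986).

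The same comparison in GM-treated and in MDP-treated cultures uses other libraries, 3 KO and 3 WT each, and is set beside the water values. The labels do not say whether the libraries of different treatments came from the same animals or cultures. edgeR called 4654 of 14377 genes under GM (32.4%), 14.8% higher and 17.6% lower. Under MDP it called 6711 of 14304 (46.9%), 23.7% higher and 23.3% lower. The counts below are to be read beside these shares. The GM count was 2190 to 2235 without a KO library, 2833 without WT replicate 1 and 5630 to 6514 without WT replicate 2 or 3, and the MDP count 5899 to 6357 with any 1 library left out. Of the 998 genes higher in KO water cultures, 988 were tested under GM, where 705 were higher (71.4%) and 32 lower. Under MDP 985 were tested, and 699 were higher (71.0%) and 46 lower. Of the 1258 genes lower in water, 989 of the 1216 tested under GM were lower (81.3%) and 0 higher, and 795 of the 1139 tested under MDP were lower (69.8%) and 39 higher. Tlr4 had log2 fold changes of -1.82 in water, -2.25 under GM and -1.35 under MDP. For Irak3 they were 2.33 in water, 1.83 under GM and 2.37 under MDP, and for Mmp2 2.59 in water, 1.77 under GM and 2.24 under MDP. These 3 genes were called in the same direction in each treatment. Plau differed by -2.32 in water, -2.14 under GM and -2.41 under MDP, and Ccl2 by -2.42 in water, -3.20 under GM and -1.97 under MDP. Il1b, Il6 and Nos2 had the opposite sign under GM. Il1b differed by 3.23 in water, -2.34 under GM and 3.20 under MDP, Il6 by 2.21 in water, -4.92 under GM and 2.34 under MDP and Nos2 by 3.44 in water, -3.54 under GM and 4.16 under MDP, each called in all treatments. Under GM the KO cultures thus held less of these transcripts than the WT cultures, while in water and under MDP they held more. Cd14 was called in water and MDP but not under GM, at 1.76 in water, -0.24 under GM and 2.17 under MDP. Of the cytokine list, 2 members were higher and 14 lower under GM, and 13 higher and 4 lower under MDP. The antimicrobial and acute-phase list, which holds Nos2, had 5 of 27 members higher and 7 lower under GM (median 0.08), and 24 higher and 1 lower under MDP. Of the 40 interferon-stimulated genes, 0 were higher and 27 lower under GM, and 2 higher and 30 lower under MDP. The cell cycle list had 27 of 34 members called higher under GM and 16 under MDP, where 8 were lower. Among fibroblast and stroma markers, 15 of 19 were lower under GM and 10 of 16 under MDP, where 6 were higher. Whether the genotype difference depended on the treatment was not tested here.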

How the data were processed

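The deposited file held whole-number read counts per gene for 18 libraries, made by the authors with HISAT2 2.0.5 and featureCounts 1.5.0-p3 on GRCm39, per the submitters' processing notes; per the labels, total RNA went into directional poly(A) libraries. Strand and multi-mapping settings of the counting were not given in the sources used here. No further value columns were left unmapped. Genes were kept with filterByExpr (minimum count 10), scaled by TMM and fitted with edgeR 4.0.16 (robust quasi-likelihood, 2-sided, Benjamini-Hochberg over all genes tested, threshold 0.05) in R 4.3.3, on the 6 water libraries alone. CPM are counts-per-million values of the TMM-scaled library size. The fit was also run on simulated counts in which all WT libraries shared a common spread. WT replicate 3 stood apart in the real data, so that run does not check the calls made with it. Alternatives were a fit of all 18 libraries, limma 3.58.1 (voom, a spread per group), DESeq2 1.42.0, RLE scaling, no filter, a replicate block, each library left out and a test against 1.5-fold.

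The members and gene lists were chosen with earlier results of these data known. Genes were named by rule: Tlr4 with called members of its complex, Ly96 and Cd14; the 10 largest changes in each direction among genes called with and without WT replicate 3, with at least 5 CPM in the higher group and groups that did not overlap; the 5 with the highest CPM in each direction among those changed at least 2-fold; up to 4 called members per list; called genes within 5 Mb of Tlr4; culture checks; and the 5 genes in each direction with WT replicate 3 farthest from the other WT libraries. Further list members were named after their values were seen. A few genes that these rules select are not reported here. Promoters came from RefSeq (GRCm38.p6), matched by symbol, with windows for 10211 of the 14294 tested genes; entries missing there were not looked for elsewhere. Counting intervals and floors cover counting error only, since the libraries carried no molecular identifiers that the labels mention. The labels number biological replicates without naming animals or cultures.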

Additional observations from a re-analysis of the deposited data

Results flagged for a closer look

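For 27 named genes every KO library lay on one side of every WT library in water and on the other side in GM-treated or MDP-treated cultures. In water, KO lay wholly above WT in 22.9% of all genes tested and wholly below in 23%. The share of all genes that changed side is not given, and most named genes were chosen among those called in water. The count of 27 is thus no measure of an excess. The difference between treatments was not tested for any of them, the libraries differ in their spread, and the values are log2 fold changes of KO over WT. Under GM all of these genes were higher in KO in water and lower in KO after treatment.

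Among cytokines, chemokines and NF-kB feedback genes under GM, the pairs of values were Il1b (3.23 in water, -2.34), Il6 (2.21 in water, -4.92), Tnfsf15 (2.79 in water, -1.39), Ccl5 (1.42 in water, -2.76), Nfkbia (0.71 in water, -0.32) and Tnfaip3 (0.70 in water, -0.46). Csf3 had no count in WT water libraries and at least 18.2-fold more in KO, and under GM its log2 fold change was -2.46. Among effectors the pairs were Nos2 (3.44 in water, -3.54), Saa3 (2.46 in water, -0.93), Slc7a2 (1.43 in water, -1.52) and Ptges (1.33 in water, -1.35). For the nucleic acid sensor Zbp1, the glycolipid receptor Clec4e and the protease inhibitor Serpinb2 they were Zbp1 (1.15 in water, -0.91), Clec4e (2.83 in water, -0.77) and Serpinb2 (0.98 in water, -1.61).

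Under MDP, genes lower in KO water cultures and higher in KO MDP cultures were Cish (-2.16 in water, 1.27), Cd80 (-0.70 in water, 0.80), Ndrg1 (-0.93 in water, 0.19), Ripk2 (-0.88 in water, 0.25), Plaur (-0.72 in water, 0.16) and Pfkp (-0.73 in water, 0.21). The stromal markers of this kind were Pdgfrb (-1.76 in water, 0.88), Lepr (-2.79 in water, 1.55) and Acta2 (-1.61 in water, 0.61), at levels of at most 8.19 CPM in the MDP libraries. Genes higher in KO in water and lower under MDP were Ifi27l2a (1.10 in water, -0.36), Oas1a (0.77 in water, -0.36), Ccl5 (1.42 in water, -0.25), Pmvk (0.83 in water, -0.72) and Fdft1 (0.70 in water, -0.38). Ccl5 was thus higher in KO cultures in water and lower both under GM and under MDP.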

How the results depend on the processing

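Tlr4 and the 214 other named genes kept the sign of their difference under each alternative run. The balance of calls within a list was turned round without WT replicate 3 for glycolysis and HIF-1 targets (12 higher and 6 lower, against 2 and 4 with 6 libraries), oxidative phosphorylation (9 and 5, against 1 and 2), lysosome (13 and 8, against 2 and 3), lipid handling (9 and 11, against 5 and 3), receptor and lineage regulator genes (11 and 12, against 4 and 2), macrophage identity (7 and 11, against 4 and 3) and endothelium (1 and 2, against 1 and 0). The macrophage balance also turned with DESeq2 (4 and 6), voom (4 and 5) and the fit of all 18 (5 and 6), and the lipid balance in the fit of all 18 (6 and 7). Scavenger receptors (5 and 6) became 4 and 3 with the block or without WT replicate 2, and 3 to 4 and 1 without a KO library, and their median turned to 0.11 without WT replicate 3, against -0.09. B cell (3 and 1) and osteoclast (1 and 2) markers turned to 0 and 1 and to 1 and 0 without any 1 KO library. Lysosome turned to 1 and 0 without KO replicate 1, endothelium to 0 and 1 with the block, and T and NK cell markers (0 and 1) to 1 and 0 without WT replicate 1. The 2256 genes called (998 higher, 1258 lower) became 5110 (2250 and 2860) in the fit of all 18 libraries, 829 (352 and 477) with replicate number as a block, 558 (233 and 325) when tested against a 1.5-fold change, and 353 to 7264 (170 to 3427 and 183 to 3837) with 1 library left out. DESeq2 called 3305, limma with voom 2090, RLE scaling 2255 and no filter 1969. The 188 list members called became 319, 117 with the block and 59 to 471 with 1 library left out, and the 8 genes near Tlr4 became 14, 5 and 2 to 17. The 4654 genes called under GM became 2190 to 6514 with 1 library left out, and the 6711 under MDP became 4016 in the fit of all 18. Tlr4 kept its call in all 12 alternatives (log2 fold change -1.93 to -1.59, adjusted p 2.17e-23 to 0.0394).

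Of the 213 other named genes that were called, 67 kept their call in every alternative. Calls lost numbered 1 with DESeq2, 1 in the fit of all 18, 12 with voom, 26 without the filter, 77 with the block, 132 to 143 without a KO library, 62 and 76 without WT replicate 1 and 2, and 1 without WT replicate 3. The cause was not tested. Same-numbered KO and WT libraries had deviations that correlated at 0.057, -0.036 and 0.034, so the numbers were not taken as pairs, and a call lost under the block is no sign of a smaller difference. With 3 libraries a group, an exact permutation test of 1 gene cannot go below p = 0.10, so single calls rest on the model's shared estimate of spread.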
